A study of Mus musculus with 48 samples.

Results

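The dentate gyrus on the injected side, the epileptogenic zone (EZ) of the intrahippocampal kainate model of temporal lobe epilepsy, was compared between kainate and saline 3 days after injection. All libraries recorded as ipsilateral dentate gyrus at day 3 were taken, which gave kainate mice 30, 38, 42 and 44 and saline mice 18, 29, 37 and 41, or 8 of the 48 libraries of the series. Each of its 24 mice gave an EZ library and a library of the contralateral dentate gyrus, the peri-ictal zone (PIZ), at day 3, 7 or 14, in 12 groups of 4. All mice were wild-type C57BL/6J with no transgene or deletion, 6 to 8 weeks old by the series record and slightly older by the methods, and each group held 2 males and 2 females. Transcripts of the sex chromosomes split the libraries 2 and 2 in both groups. The kainate mice received the glutamate receptor agonist into 1 hippocampus and each showed a convulsive seizure scored by behavior, without EEG. The saline mice received the same injection without kainate and showed no behavioral seizure, and acetaminophen was given in the food of all mice. The dorsal dentate gyrus was microdissected whole from each mouse, so a library holds every cell type of the tissue, and RNA of all samples was extracted together. In such bulk tissue fewer cells of a type and less RNA per cell cannot be told apart.

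The dentate gyrus is the input gate of the hippocampus. Its granule cells receive the perforant path, drive hilar mossy cells and CA3 pyramidal cells through mossy fibers, and are held in check by hilar interneurons. Kainate opens ionotropic glutamate receptors, and prolonged seizures are known for inducing immediate early genes and neuropeptides in granule cells, for loss of hilar neurons and for activation of microglia and astrocytes. The dentate gyrus also keeps neural stem cells, whose division and differentiation change after seizures.

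Library totals lay between 20863676 and 25712975 counts, and 21390 genes had enough counts to be tested. The kainate libraries detected 29361.5 ± 438 genes (SD, n = 4) and the saline libraries 28206 ± 194. Mitochondrially encoded transcripts took 5.36% ± 0.37 of counts in the kainate and 7.31% ± 0.17 in the saline libraries, without overlap (exact permutation test, 2-sided, p = 0.0286, the smallest possible, adjusted p = 0.0476 over 5 library measures). In a principal component analysis of the 8 libraries, the first component (72.7%) separated the groups, with kainate mouse 44 at -24.1 and the other kainate mice between -103.0 and -65.1. Saline mice lay between 51.7 and 79.0. Mouse 44 also stood apart on the second component (7.07%), at -55.7. Of markers of neighboring tissue, those of choroid plexus, thalamus and blood did not rise as groups. Summed over their lists, choroid plexus genes lay at 8.72 to 12.2 CPM (counts scaled to a common library size) in kainate and 19.3 to 24.4 CPM in saline mice, lower without overlap. In the same order, thalamic genes lay at 80.5 to 113 and 105 to 115 CPM, and blood genes at 111 to 252 and 177 to 213 CPM. Fibroblast and meningeal genes were higher without overlap, at 118 to 437 and 61.2 to 102 CPM. Pyramidal cell genes were lower without overlap, at 111 to 206 and 337 to 533 CPM. The granule cell transcription factor Prox1 (chr1:189850232-189904637) was present in every library, at 272, 204, 249.7 and 264 CPM in kainate and 229, 294, 255 and 297 CPM in saline mice, and its groups overlapped.

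On the injected side at day 3, where 16.1% of all genes tested rose and 8.61% fell with kainate, 28 of 28 listed genes of the interferon response rose, as did 15 of 16 of antigen presentation, 16 of 18 of activated microglia, 22 of 24 of DNA replication and 27 of 28 of mitosis. Of the 3 lists of reactive astrocytes 11 of 13 pan-reactive, 9 of 12 neurotoxic-type and 10 of 11 protective-type genes rose, and of immediate early genes 11 of 16. Of activated endothelium 7 of 10 rose, and of matrix proteins 20 of 29 rose and 4 fell, or 13 and 4 without kainate mouse 38. Among neuronal genes, 10 of 14 of interneurons fell, 9 of 13 of calcium calmodulin kinases and 16 of 37 of ion channels. Of synaptic vesicle genes 16 of 20 fell, of ionotropic glutamate receptors 9 of 17 and of GABA-A receptors 7 of 12, but these were 9, 4 and 5 without kainate mouse 38. Tested against a 1.5-fold change with glmTreat, 5 synaptic vesicle, 1 ionotropic glutamate receptor, 2 GABA-A receptor and 5 ion channel genes fell, and 13 matrix protein genes rose. Genes of myelin, cholesterol synthesis and the respiratory chain had 0 calls in the edgeR test, and 2 of 12, 2 of 18 and 6 of 24 of them had an unadjusted p under 0.05. Kainate changed the level of 5280 genes (24.7% of those tested) in the edgeR quasi-likelihood test, in which a gene was called with a Benjamini-Hochberg adjusted p below 0.01 together with a change of more than 1.5-fold, and 3439 of them (16.1%) rose and 1841 (8.61%) fell. The rises were larger. Among called genes, 1118 rose and 279 fell over 4-fold, and 150 rose and 12 fell over 16-fold. Every kainate mouse lay above every saline mouse in 5112 genes (23.9%) and below in 3962 (18.5%), and these included 3228 of the genes that rose and 1742 of those that fell. Genes that rose took 12.7% to 20.8% of all counts of a library in the kainate mice and 5.66% to 7.00% in the saline mice, whereas genes that fell took 11.1% to 16.8% and 23.5% to 25.2%. Protein-coding genes rose more often (2985 of 15531, 19.2%) than they fell (1479, 9.52%), but long noncoding RNAs fell more often (213 of 1865, 11.4%) than they rose (146, 7.83%). Where 0 members of a list are given as higher (14 lists with 176 tested members) or as lower (28 lists with 426), 9 and 20 of these members had an unadjusted p under 0.05 in that direction, and DESeq2 called 0. Scaling by library size alone, without the TMM correction for composition, shifted the median log2 fold change of all genes from 0.0323 to 0.159 and the split to 4233 higher and 1313 lower, or 76.3% higher against 65.1%.

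**Figure D1:**
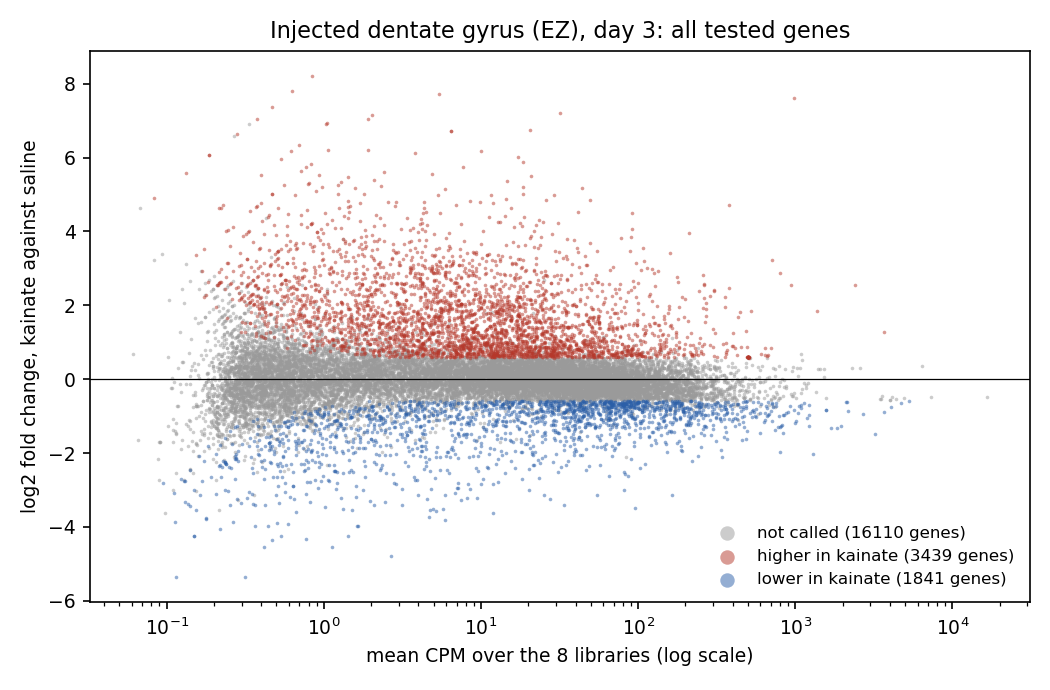
Each point is a tested gene, with its mean level over the 8 libraries on a log axis (CPM) and its log2 fold change of kainate against saline in the EZ at day 3. Red points are the 3439 genes called higher, blue points the 1841 called lower and gray points genes not called, and the red points reach further from 0 than the blue ones.

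Levels of single mice are given in CPM for kainate mice 30, 38, 42 and 44 in this order and then for saline mice 18, 29, 37 and 41, and the error after ± is the standard error of the fitted log2 fold change. Among the genes with the smallest p, those that rose included a matrix regulator, a nucleolar factor and an inhibitor of ribonucleases. Ltbp3 (ENSMUSG00000024940.12, chr19:5790932-5808669), which tethers latent TGF-beta in the matrix, stood at 72.5, 71.9, 62.7 and 80.7 CPM in kainate and 19.1, 23.1, 22.9 and 21.6 CPM in saline mice. Ltbp3 was highest in mouse 44 and its groups lay far apart, with a log2 fold change of 1.73 ± 0.18 (adjusted p = 1.39e-08). Rnh1 (ENSMUSG00000038650.16, chr7:140740235-140752775), the cytosolic ribonuclease inhibitor, was at 72.3, 100.3, 85.6 and 73.6 CPM in kainate and 34.8, 36.2, 34.4 and 33.7 CPM in saline mice. Rnh1 was highest in mouse 38 and varied little among saline mice, with a log2 fold change of 1.25 ± 0.13 (adjusted p = 5.05e-09). Nop9 (ENSMUSG00000019297.10, chr14:55983136-55994598), which takes part in making the small ribosomal subunit, was at 28.5, 45.1, 40.2 and 28.3 CPM in kainate and 12.6, 13.3, 11.5 and 12.5 CPM in saline mice. Mice 38 and 42 were highest in Nop9 (log2 fold change 1.51 ± 0.15, adjusted p = 5.74e-09). Tril, a co-receptor of Toll-like receptors, stood at 139, 98.7, 94.0 and 96.5 CPM in kainate and 38.6, 47.9, 34.8 and 39.9 CPM in saline mice, with mouse 30 the highest (log2 fold change 1.41 ± 0.14, adjusted p = 2.71e-09).

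Among the genes that fell with the smallest p were Camkk2, Frmpd4, Tppp and Ilrun. Camkk2 (ENSMUSG00000029471.14, chr5:122869233-122917739), a calcium-dependent kinase that activates CaMKI, CaMKIV and AMPK, was at 62.9, 63.2, 65.9 and 60.7 CPM in kainate and 150.1, 139, 145 and 146 CPM in saline mice. Camkk2 was nearly equal within each group (log2 fold change -1.20 ± 0.11, adjusted p = 3.93e-10). Frmpd4 (ENSMUSG00000049176.17, chrX:166254305-167360227), a spine scaffold that binds PSD-95, was at 23.99, 16.9, 28.7 and 45.9 CPM in kainate and 102, 85.5, 104 and 94.5 CPM in saline mice. Mouse 38 was lowest and mouse 44 nearest to saline in Frmpd4 (log2 fold change -1.74 ± 0.18, adjusted p = 9.23e-09). Tppp (ENSMUSG00000021573.16, chr13:74156864-74184298), a tubulin-polymerizing protein of oligodendrocytes and neurons, was at 159.6, 147, 161 and 250.04 CPM in kainate and 571, 503, 517 and 519 CPM in saline mice, again with mouse 44 nearest to saline (log2 fold change -1.56 ± 0.16, adjusted p = 1.24e-08). Ilrun, an inhibitor of interferon regulatory factors, was at 136, 130.2, 149 and 147 CPM in kainate and 237, 226, 234 and 236 CPM in saline mice, a smaller but even fall (log2 fold change -0.73 ± 0.08, adjusted p = 2.02e-08).

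Spp1, Cd5l, Chil3, Fam110c and Ptpn7 were named for their fitted log2 fold change among protein-coding genes of at least 1 CPM, which depends on the prior count where saline libraries hold few counts, so that no order among large rises is read from it. Spp1 (ENSMUSG00000029304.15, chr5:104582165-104589235), osteopontin, was at 701, 4399.7, 2557 and 129 CPM in kainate and 2.56, 21.1, 5.35 and 11.0 CPM in saline mice. Mouse 38 held the most and mouse 44 the least Spp1 of the kainate mice, and the log2 fold change was 7.61 ± 1.0501 (adjusted p = 6.05e-07). Without kainate mouse 38 or saline mouse 29 the value was 6.82 or 8.28. Cd5l (ENSMUSG00000015854.8, chr3:87265182-87278380), a macrophage protein that blocks apoptosis, was at 14.6, 141, 92.6 and 4.29 CPM in kainate and 0.221, 0.900, 0.138 and 0.438 CPM in saline mice. Its order over the kainate mice was that of Spp1, and its log2 fold change was 7.20 ± 1.24 (adjusted p = 1.67e-05), or 6.44 without kainate mouse 38 and 7.88 without saline mouse 29. With mouse as a random block Cd5l was not called, at 6.41 (adjusted p = 0.0277). Chil3 (ENSMUSG00000040809.11, chr3:106054870-106074880), a chitinase-like protein of monocytes and alternatively activated macrophages, was at 9.33, 17.6, 15.5 and 0.758 CPM in kainate and 0, 0.0450, 0 and 0.146 CPM in saline mice. All saline libraries were at 3 counts or fewer for Chil3, which was at least 78.4-fold higher in kainate mice against this floor per library. Ptpn7, a phosphatase of blood cells, was at least 15.1-fold higher by the same measure, and Fam110c, a microtubule-associated protein, at least 29.3-fold, or 18.5-fold without kainate mouse 44. Fam110c stood at 4.78, 1.87, 0.979 and 8.55 CPM in kainate and 0, 0, 0.0922 and 0 CPM in saline mice, so that mouse 44, which had the least Spp1, Cd5l and Chil3, had the most Fam110c.

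The genes named for their fitted falls by the same rule included genes with few counts. Fgf10 (ENSMUSG00000021732.15, chr13:118806327-118928672), a fibroblast growth factor, was at 0.306, 0.344, 0.435 and 2.10 CPM in kainate and 10.2, 10.8, 11.2 and 12.1 CPM in saline mice. Its log2 fold change was -3.82 ± 0.57 (adjusted p = 1.86e-06), or -4.91 without kainate mouse 44, which was nearest to saline. Otof (ENSMUSG00000062372.14, chr5:30524406-30619324), the exocytosis sensor otoferlin, was at 0.0383, 0.153, 0.0363 and 0.126 CPM in kainate and 2.52, 1.53, 2.54 and 2.05 CPM in saline mice, close to nothing in every kainate mouse (log2 fold change -4.54 ± 0.99, adjusted p = 2.87e-04). Cldn22, a claudin, was at 0.115, 0.230, 0.181 and 0.253 CPM in kainate and 4.77, 1.94, 2.67 and 3.12 CPM in saline mice (log2 fold change -3.97 ± 0.73, adjusted p = 3.42e-05). Rtl3, derived from a retrotransposon, was at 0, 0.0765, 0.580 and 0.0421 CPM in kainate and 6.67, 4.41, 2.91 and 6.77 CPM in saline mice. Rtl3 fell in all 4 kainate mice (log2 fold change -4.80 ± 0.78, adjusted p = 6.82e-06), or -6.84 without kainate mouse 42.

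Immediate early genes rose on the injected side, 11 of 16 listed members, and 0 fell, with a median log2 fold change of 2.04 against 0.0323 over all genes. In 7 of the 16 all kainate mice lay above all saline mice. Fos (chr12:85520658-85524047), the AP-1 subunit induced by neuronal firing, was at 87.6, 122, 77.3 and 18.1 CPM in kainate and 1.90, 9.59, 11.6 and 4.92 CPM in saline mice. Mice 30, 38 and 42 were far above saline and mouse 44 was between, with a log2 fold change of 3.45 ± 0.63 (adjusted p = 3.15e-05). Fosb, a related subunit, was at 30.5, 33.4, 16.1 and 7.66 CPM in kainate and 2.87, 5.09, 7.19 and 4.38 CPM in saline mice, and mouse 44 was close to the highest saline mouse (log2 fold change 2.17 ± 0.38, adjusted p = 1.78e-05). Fosl1, which also marks wounded and dividing glia, was at 2.14, 7.04, 5.99 and 2.78 CPM in kainate and 0.0441, 0.225, 0.138 and 0.0487 CPM in saline mice (log2 fold change 5.22 ± 0.73, adjusted p = 1.08e-06). Arc, which moves into active dendrites and removes AMPA receptors, was at 317, 267, 274 and 32.1 CPM in kainate and 51.6, 73.0, 118 and 30.4 CPM in saline mice. Here the groups overlapped, since mouse 44 was within the saline range, and the log2 fold change was 1.71 ± 0.43 (adjusted p = 0.00129). With only the compared groups in the model Arc was not called (1.66, adjusted p = 0.0510). Summed over the list, mouse 44 stood at 444 CPM, the other kainate mice at 1281 to 1914 CPM and the saline mice at 420 to 729 CPM.

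Neuropeptide genes moved in both directions, with 6 of 17 higher and 5 lower, namely Sst, Cck, Vip, Tac1 and Nmb. Penk, the enkephalin precursor of granule cells and interneurons, was at 1631, 491, 504 and 282 CPM in kainate and 25.7, 35.1, 27.4 and 23.1 CPM in saline mice. Mouse 30 was highest, and Penk rose with a log2 fold change of 4.71 ± 0.78 (adjusted p = 8.89e-06) (3.93 without kainate mouse 30). Scg2, secretogranin II of dense-core vesicles, was at 1245, 714, 749 and 558 CPM in kainate and 218, 250.1, 227 and 207 CPM in saline mice, with the same mouse highest (log2 fold change 1.86 ± 0.42, adjusted p = 4.32e-04). Trh, thyrotropin-releasing hormone, was at 6.43, 5.43, 6.46 and 0.631 CPM in kainate and 0.0883, 0.0900, 0.0461 and 0.146 CPM in saline mice. The saline mice were at or below the floor for Trh, which was at least 34.4-fold higher in kainate mice, but its call was lost with mouse as a random block (adjusted p = 0.0178). Npy, neuropeptide Y, which granule cells begin to make after seizures, was at 62.5, 75.0, 99.4 and 77.7 CPM in kainate and 32.1, 40.4, 42.01 and 40.6 CPM in saline mice. Npy was higher in each kainate mouse but was not called (log2 fold change 1.02 ± 0.42, adjusted p = 0.0444). Sst, somatostatin of hilar interneurons, fell and is given with the interneurons below.

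Of 14 tested neurotrophic genes 6 rose and 2 fell, Gfra2 and Ntf3, and only 1 fall was called without kainate mouse 38, kainate mouse 30 or saline mouse 29. Bdnf (chr2:109505045-109557475), the activity-induced neurotrophin of granule cells, was at 539, 283, 241 and 97.4 CPM in kainate and 79.4, 83.8, 68.7 and 70.004 CPM in saline mice. Mouse 44 was just above the saline range, and the log2 fold change was 1.94 ± 0.46 (adjusted p = 6.73e-04). Without kainate mouse 30 the call was lost, at 1.46 (adjusted p = 0.0103). Gdnf, the ligand of the GFRA1 and RET receptor pair, was at 8.11, 4.97, 2.83 and 0.337 CPM in kainate and 0, 0.315, 0.0461 and 0 CPM in saline mice. Gdnf was almost absent from saline mice and lowest in mouse 44 (log2 fold change 5.39 ± 1.15, adjusted p = 2.10e-04, 7.59 without saline mouse 29). Gfra2, the receptor for the GDNF relative neurturin, moved the other way, at 8.80, 7.27, 10.2 and 7.49 CPM in kainate and 33.1, 31.1, 35.7 and 39.02 CPM in saline mice, with no mouse apart from its group (log2 fold change -2.04 ± 0.16, adjusted p = 2.11e-11).

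Markers of neuron classes fell in part, and a difference between the classes was not tested. Of 12 granule cell genes 0 rose and 3 fell, namely Calb1, Tdo2 and Dsp, and in 6 every kainate mouse was below every saline mouse (median -0.69). Without kainate mouse 38, kainate mouse 30 or saline mouse 41 the count of 3 was 1, and it was 6 when the model held only the compared groups. Calb1, the calcium buffer calbindin, lost its call without kainate mice 38, 30 or 44 or saline mouse 41, at -1.03, -1.14, -1.06 and -1.16, and with the offset for GC content and length, at -0.84. Tdo2 (chr3:81864248-81883509), tryptophan dioxygenase of mature granule cells, was at 0.803, 0.995, 2.79 and 1.85 CPM in kainate and 12.4, 15.4, 8.53 and 13.9 CPM in saline mice. Tdo2 was well below saline in each kainate mouse (log2 fold change -2.96 ± 0.59, adjusted p = 9.71e-05). C1ql2, a synaptic organizer of mossy fibers, was at 32.9, 17.4, 32.7 and 169 CPM in kainate and 102, 123, 116 and 134 CPM in saline mice. Mice 30, 38 and 42 were far below saline but mouse 44 was above every saline mouse, so the gene was not called (log2 fold change -0.91 ± 0.59, adjusted p = 0.201), and without mouse 44 it was, at -2.10 (adjusted p = 0.00412).

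Among 5 mossy cell genes Drd2, Ajap1 and Nmb fell and 0 rose, or 1 rose without kainate mouse 30 or 44. Drd2, the dopamine D2 receptor that marks hilar mossy cells, was at 0.0383, 0.115, 0.218 and 0.758 CPM in kainate and 1.81, 1.94, 1.89 and 1.90 CPM in saline mice. Drd2 was below 0.3 CPM in all kainate mice but mouse 44 (log2 fold change -2.75 ± 0.52, adjusted p = 4.36e-05, -3.85 without mouse 44). Calb2, calretinin of mossy cells and immature granule cells, was at 8.11, 13.5, 13.6 and 4.34 CPM in kainate and 7.55, 7.02, 8.99 and 9.50 CPM in saline mice, with overlap and no call (log2 fold change 0.26 ± 0.68, adjusted p = 0.775). Of 8 genes of CA pyramidal cells, which border the dissected tissue, Fibcd1, Mpped1 and Iyd fell. Fibcd1, a CA1 marker, was at 17.8, 21.2, 36.7 and 31.4 CPM in kainate and 92.5, 81.4, 138 and 65.3 CPM in saline mice (log2 fold change -1.82 ± 0.43, adjusted p = 6.08e-04). Iyd, the iodotyrosine deiodinase of CA3 cells, was at 0.306, 0.191, 0.363 and 2.15 CPM in kainate and 12.8, 6.93, 5.44 and 9.55 CPM in saline mice. Iyd fell in all kainate mice, least in mouse 44 (log2 fold change -3.56 ± 0.69, adjusted p = 7.15e-05, -4.89 without mouse 44). Summed over the 8 genes, kainate mice held 111 to 206 CPM and saline mice 337 to 533 CPM, and the part of neighboring pyramidal tissue in this and other falls was not tested.

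Of 14 interneuron genes 10 fell and 0 rose (median -1.73), or 8 fell and 1 rose with only the compared groups in the model. Sst (chr16:23707321-23711733) was at 0.689, 2.18, 5.37 and 12.4 CPM in kainate and 41.4, 34.8, 60.6 and 42.6 CPM in saline mice. Every kainate mouse was below every saline mouse, mouse 30 the lowest and mouse 44 the highest of them, and the log2 fold change was -3.13 ± 0.66 (adjusted p = 1.90e-04) (-4.02 without mouse 44). Reln, the secreted reelin of hilar and molecular layer interneurons, was at 9.76, 24.4, 23.2 and 26.6 CPM in kainate and 63.3, 60.8, 68.3 and 71.7 CPM in saline mice (log2 fold change -1.65 ± 0.20, adjusted p = 5.55e-08). The enzymes of GABA synthesis were not called. Gad1 was at 232, 146, 180.2 and 160.3 CPM in kainate and 214, 217, 282 and 254 CPM in saline mice and Gad2 at 168, 66.8, 71.7 and 65.7 CPM in kainate and 97.8, 87.3, 139.7 and 116 CPM in saline mice (log2 fold change -0.43 ± 0.18, adjusted p = 0.0459 and log2 fold change -0.24 ± 0.24, adjusted p = 0.429). In both, kainate mice 38, 42 and 44 were below every saline mouse and mouse 30 was not. Mouse 30, lowest in Sst, was highest in Gad2. Of the other interneuron genes, Slc32a1, the vesicular GABA transporter, and Pvalb, Vip, Lhx6, Cnr1, Lamp5 and Cck fell as well, and Nos1 was not called.

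**Figure D2:**
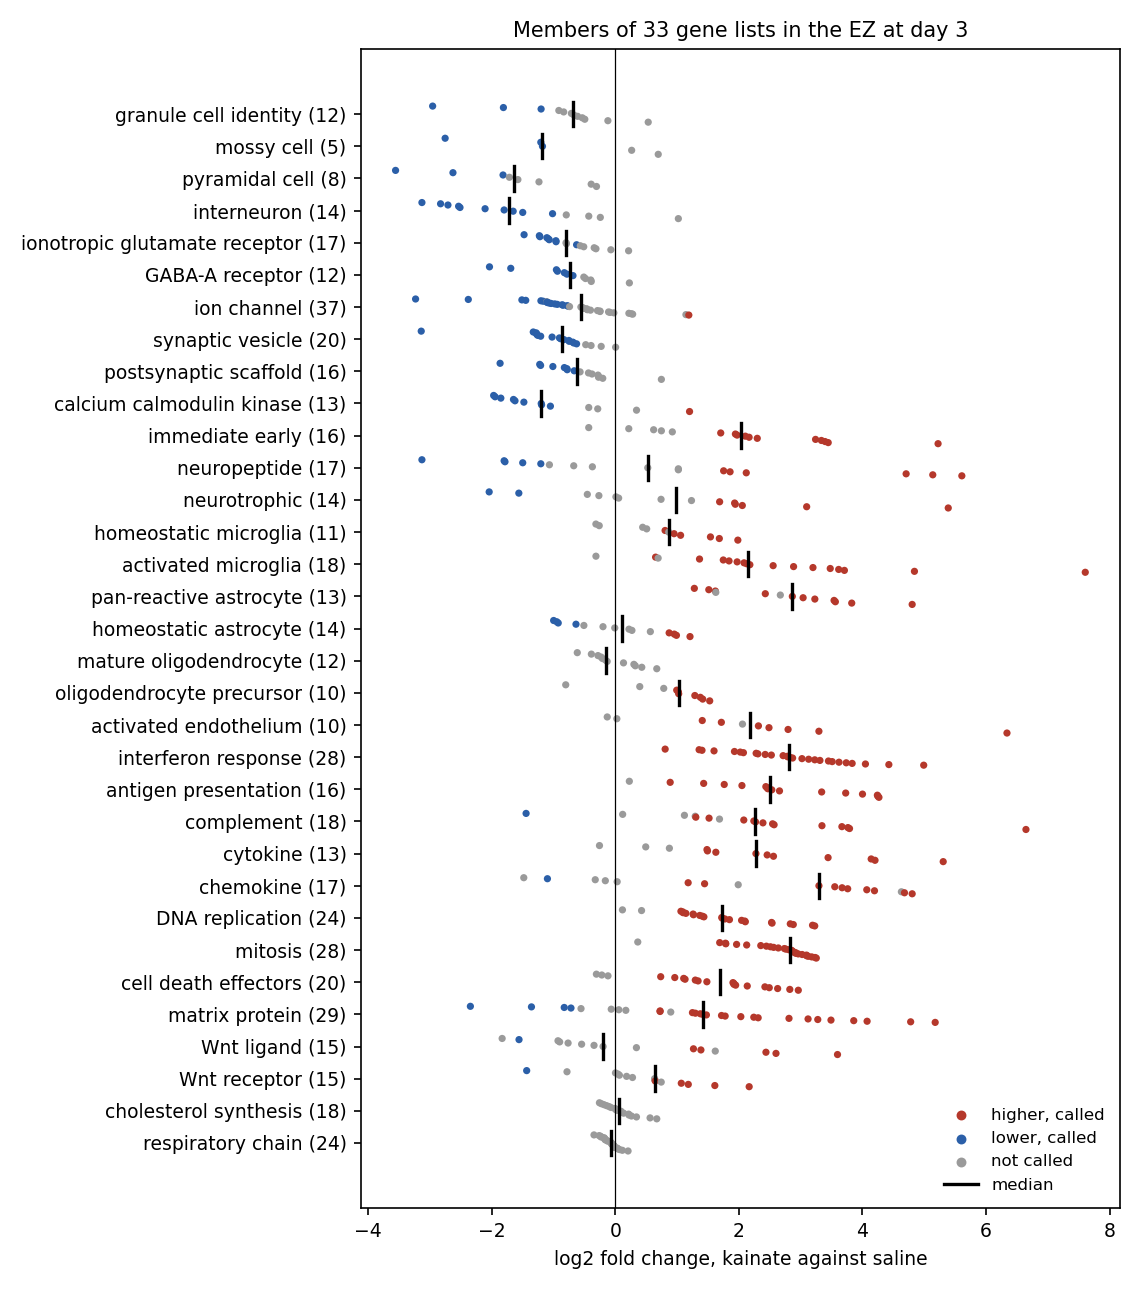
Each row is a gene list with its number of tested genes, each point a member at its log2 fold change of kainate against saline in the EZ at day 3, and the bar the list's median. Red points were called higher, blue lower and gray neither, and for example the synaptic vesicle and interneuron medians lie left of 0, those of interferon and mitosis genes right of it and that of mature oligodendrocyte genes close to it.

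Receptors and channels of neurons fell in part and seldom rose. Of 17 ionotropic glutamate receptor genes 9 fell and 0 rose (median -0.80), and without kainate mouse 38 there were 4, 5 with an offset for GC content and length. Gria1 (chr11:56902153-57221080), an AMPA receptor subunit and the most abundant of them per kilobase, was at 436, 365, 561 and 612 CPM in kainate and 1174, 1173, 1161 and 1119 CPM in saline mice. Gria1 was at about the same level in all saline mice and below it in each kainate mouse (log2 fold change -1.23 ± 0.29, adjusted p = 7.56e-04). Gria2, the subunit that makes AMPA receptors impermeable to calcium, was at 686, 473, 579.5 and 567 CPM in kainate and 1106, 1129, 1185 and 1069 CPM in saline mice (log2 fold change -0.96 ± 0.17, adjusted p = 1.99e-05), but its value was -0.26 (adjusted p = 0.0204) and not called with the offset for GC content and length. Grik1, a kainate receptor subunit of interneurons, was at 1.38, 1.65, 1.67 and 4.38 CPM in kainate and 6.05, 4.77, 7.19 and 7.11 CPM in saline mice. Grik1 fell (log2 fold change -1.48 ± 0.38, adjusted p = 0.00144), but its call was lost without kainate mouse 38, at -1.35. Of 7 metabotropic receptor genes only Grm5, which signals through Gq, fell, at 165, 99.97, 127 and 199.95 CPM in kainate and 266, 260.5, 295 and 253 CPM in saline mice (log2 fold change -0.86 ± 0.22, adjusted p = 0.00127), and it too lost its call without mouse 38 (-0.71). Without mouse 44 the number of metabotropic genes that fell was 2.

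Of 12 GABA-A receptor genes 7 fell and 0 rose, or 4 with the GC and length correction. Gabra3 (chrX:71476275-71700723), the alpha 3 subunit, was at 3.25, 3.37, 3.12 and 8.08 CPM in kainate and 17.1, 17.1, 22.1 and 16.5 CPM in saline mice, with mouse 44 above the other kainate mice (log2 fold change -2.04 ± 0.43, adjusted p = 1.80e-04). Of 37 ion channel genes 16 fell and 1 rose. Kcnq5 (chr1:21468627-22032166), a channel of the M current that damps firing, was at 4.28, 3.14, 4.86 and 9.05 CPM in kainate and 81.3, 32.1, 40.996 and 45.3 CPM in saline mice. Kcnq5 fell in all kainate mice and most in mouse 38 (log2 fold change -3.23 ± 0.63, adjusted p = 6.83e-05). The gene that rose was Kcnip3, which codes for the calcium sensor DREAM that binds A-type channels and represses transcription, at 239.6, 168, 199 and 178 CPM in kainate and 83.9, 99.0, 78.7 and 82.4 CPM in saline mice (log2 fold change 1.19 ± 0.18, adjusted p = 1.96e-06).

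Genes of both sides of the synapse fell in part. Of 20 synaptic vesicle genes 16 fell and 0 rose (median -0.86), but 9 without kainate mouse 38. Sv2b (chr7:74761975-74959131), a vesicle glycoprotein of glutamatergic terminals, was at 22.95, 17.6, 29.4 and 64.4 CPM in kainate and 417, 215, 281 and 271 CPM in saline mice. Sv2b was lower by far in every kainate mouse (log2 fold change -3.14 ± 0.42, adjusted p = 4.21e-07). Syn2, a synapsin, was at 252, 134, 193 and 393 CPM in kainate and 688, 515, 545 and 608 CPM in saline mice, with mouse 44 nearest to saline (log2 fold change -1.28 ± 0.36, adjusted p = 0.00321). Its call was lost without kainate mice 38 or 42 or saline mouse 18, at -1.07, -1.18 and -1.19. Of 16 postsynaptic scaffold genes 8 fell, or 4 without kainate mouse 38, 5 without saline mouse 37 or with scaling by library size, and 1 with glmTreat. Homer2, which links group I glutamate receptors to calcium stores, was at 16.5, 21.4, 37.8 and 47.5 CPM in kainate and 103, 110.3, 139.7 and 95.4 CPM in saline mice (log2 fold change -1.86 ± 0.37, adjusted p = 7.74e-05). Dlg2 and Dlg3, both PSD-95 relatives, were not called, at 381, 228, 284 and 207 CPM in kainate and 354, 321, 326 and 329.5 CPM in saline mice and at 296, 185, 261 and 232 CPM in kainate and 287, 285, 268 and 281 CPM in saline mice.

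Calcium calmodulin kinases fell in 9 of 13 cases and 1 rose. Camk2a, the main kinase of the postsynaptic density, was at 1148, 1282, 2065 and 2289 CPM in kainate and 4881, 4665, 4494 and 4878 CPM in saline mice. All kainate mice were under the lowest saline mouse, mice 30 and 38 the furthest (log2 fold change -1.48 ± 0.27, adjusted p = 3.23e-05). Camk4, a nuclear kinase that acts on CREB, was at 5.78, 7.08, 10.6 and 6.23 CPM in kainate and 41.7, 22.96, 24.9 and 26.6 CPM in saline mice (log2 fold change -1.97 ± 0.31, adjusted p = 4.95e-06). Camk1 rose, at 58.6, 80.8, 62.5 and 48.5 CPM in kainate and 24.5, 29.04, 25.6 and 29.7 CPM in saline mice (log2 fold change 1.201 ± 0.22, adjusted p = 3.16e-05).

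Microglial genes rose with a split between activation and homeostatic markers. Of 18 activation genes 16 rose and 0 fell (median 2.15), and 17 had all kainate mice above all saline mice. Ctsd (chr7:141929646-141941775), the lysosomal protease cathepsin D and the most abundant of them per kilobase, was at 2934, 6642, 4843 and 2018 CPM in kainate and 495, 1004, 592 and 708 CPM in saline mice. Mouse 38 was highest and mouse 44 lowest of the kainate mice, and saline mouse 29 was the highest of its group (log2 fold change 2.55 ± 0.46, adjusted p = 2.95e-05). Trem2, the lipid receptor that drives the phagocytic state, was at 64.8, 157, 115 and 58.2 CPM in kainate and 19.5, 31.6, 21.8 and 20.3 CPM in saline mice in the same order (log2 fold change 2.08 ± 0.43, adjusted p = 1.31e-04), and its adaptor Tyrobp was at 88.4, 217, 160.3 and 79.2 CPM in kainate and 22.9, 45.8, 25.2 and 30.9 CPM in saline mice (log2 fold change 2.13 ± 0.43, adjusted p = 1.24e-04). Of 11 homeostatic genes 6 rose and 0 fell, and 3 rose without kainate mouse 38, kainate mouse 42, saline mouse 37, saline mouse 18 or saline mouse 41. Tmem119, a surface marker of resident microglia, was at 67.8, 105, 91.3 and 71.9 CPM in kainate and 22.3, 37.3, 27.8 and 28.1 CPM in saline mice, without overlap (log2 fold change 1.54 ± 0.33, adjusted p = 2.47e-04). P2ry12, the ADP receptor of resting microglia, was at 49.7, 43.6, 42.8 and 88.1 CPM in kainate and 58.4, 79.3, 66.0 and 64.6 CPM in saline mice. P2ry12 was highest in mouse 44 and below every saline mouse in the other kainate mice, and was not called (log2 fold change -0.26 ± 0.22, adjusted p = 0.344).

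Of 18 genes of infiltrating leukocytes 11 had enough counts, and Ccr2, Plac8, Chil3 and Ms4a7 rose. Ccr2 (chr9:123901982-123913594), the chemokine receptor of blood monocytes, was at 6.24, 18.9, 15.5 and 3.999 CPM in kainate and 0.397, 1.13, 0.369 and 1.27 CPM in saline mice, without overlap and in the mouse order of Ctsd (log2 fold change 3.82 ± 0.46, adjusted p = 8.96e-08). Ly6c2, which monocytes share with endothelium, was at 9.22, 20.2, 16.2 and 9.43 CPM in kainate and 7.28, 9.09, 9.32 and 9.99 CPM in saline mice and was not called (log2 fold change 0.63 ± 0.24, adjusted p = 0.0315). The defining genes of neutrophils (Ly6g), T cells (Cd3e, Cd3g and Cd8a), natural killer cells (Nkg7) and B cells (Cd79a) had too few counts to be tested. The 11 genes summed to 26.6 to 96.5 CPM in the kainate and 13.2 to 20.8 CPM in the saline mice, and their part in the microglial rises was not tested.

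Reactive astrocyte genes rose in each of 3 sets, 11 of 13 pan-reactive, 9 of 12 in a set named for a neurotoxic state and 10 of 11 in a set named for a protective state, with medians of 2.86, 2.30 and 2.73. The lists were drawn up elsewhere as opposing states, but their members rose side by side here. Vim (chr2:13578738-13587639), the intermediate filament vimentin, was at 908, 1768, 1292 and 1172 CPM in kainate and 78.1, 204, 114 and 152 CPM in saline mice. Vim was several times higher in each kainate mouse (log2 fold change 3.23 ± 0.51, adjusted p = 4.57e-06). Gfap, the astrocyte filament, was already high after saline, at 5565, 4875, 4709.9 and 5524 CPM in kainate and 1325, 3307, 1692 and 2196 CPM in saline mice. Saline mouse 29 came near the kainate mice, the log2 fold change was 1.28 ± 0.40 (adjusted p = 0.00790), and the call was lost without any 1 mouse other than saline mouse 29, at values of 1.11 to 1.32, with the offset for GC content and length (1.13) and with no filter on low counts (1.26). Clcf1, a cytokine of the CNTF family from the protective set, was at 20.97, 57.4, 29.2 and 31.3 CPM in kainate and 0.927, 3.56, 1.71 and 1.66 CPM in saline mice (log2 fold change 4.14 ± 0.48, adjusted p = 4.25e-08), and Tgm1, transglutaminase 1, at 181, 199, 211 and 113 CPM in kainate and 1.15, 17.7, 3.41 and 8.62 CPM in saline mice (log2 fold change 4.51 ± 0.77, adjusted p = 1.33e-05, 5.33 without saline mouse 29). From the neurotoxic set, the class I gene H2-D1 was at 163, 323, 272 and 121 CPM in kainate and 34.5, 45.6, 33.6 and 38.2 CPM in saline mice (log2 fold change 2.53 ± 0.43, adjusted p = 1.39e-05) and Amigo2, a cell adhesion protein, was the gene that fell, at 2.41, 7.50, 15.1 and 4.93 CPM in kainate and 34.6, 19.8, 24.3 and 19.4 CPM in saline mice (log2 fold change -1.71 ± 0.49, adjusted p = 0.00442). Amigo2 lost its call without kainate mice 38, 30 or 44 or saline mouse 18, at -1.70, -1.41, -1.55 and -1.49, was at -2.31 without kainate mouse 42 and was not called with only the compared groups in the model (adjusted p = 0.0117).

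Homeostatic astrocyte genes divided evenly, with 4 of 14 higher (Aldh1l1, Aqp4, Kcnj10 and Fgfr3) and 4 lower (Slc1a2, Glul, Aldoc and Slc6a11). Aldh1l1, a folate enzyme and general astrocyte marker, was at 144, 127, 114 and 150.3 CPM in kainate and 48.5, 76.2, 47.7 and 58.9 CPM in saline mice (log2 fold change 1.21 ± 0.17, adjusted p = 8.36e-07). Slc1a2 (chr2:102488574-102621129), the glutamate transporter GLT-1, was at 1988, 1384, 1697 and 2290.5 CPM in kainate and 3338, 3754, 3501 and 3607 CPM in saline mice. Slc1a2 was lower in every kainate mouse and lowest in mouse 38 (log2 fold change -0.95 ± 0.14, adjusted p = 2.10e-06). Slc6a11, the GABA transporter GAT-3 of astrocytes, was at 55.2, 46.0, 65.4 and 66.4 CPM in kainate and 127, 106, 115 and 118 CPM in saline mice (log2 fold change -0.998 ± 0.19, adjusted p = 5.26e-05). Glul, glutamine synthetase, was at 771, 902, 899.7 and 1003 CPM in kainate and 1304, 1294, 1476 and 1485 CPM in saline mice (log2 fold change -0.64 ± 0.13, adjusted p = 1.45e-04), a call that was lost without kainate mouse 30, at -0.57, and with scaling by library size, at -0.51. Ntsr2, a neurotensin receptor of astrocytes, was at 31.1, 33.2, 46.0 and 49.5 CPM in kainate and 119, 101, 106 and 112 CPM in saline mice (log2 fold change -1.45 ± 0.15, adjusted p = 5.58e-09).

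**Figure D3:**
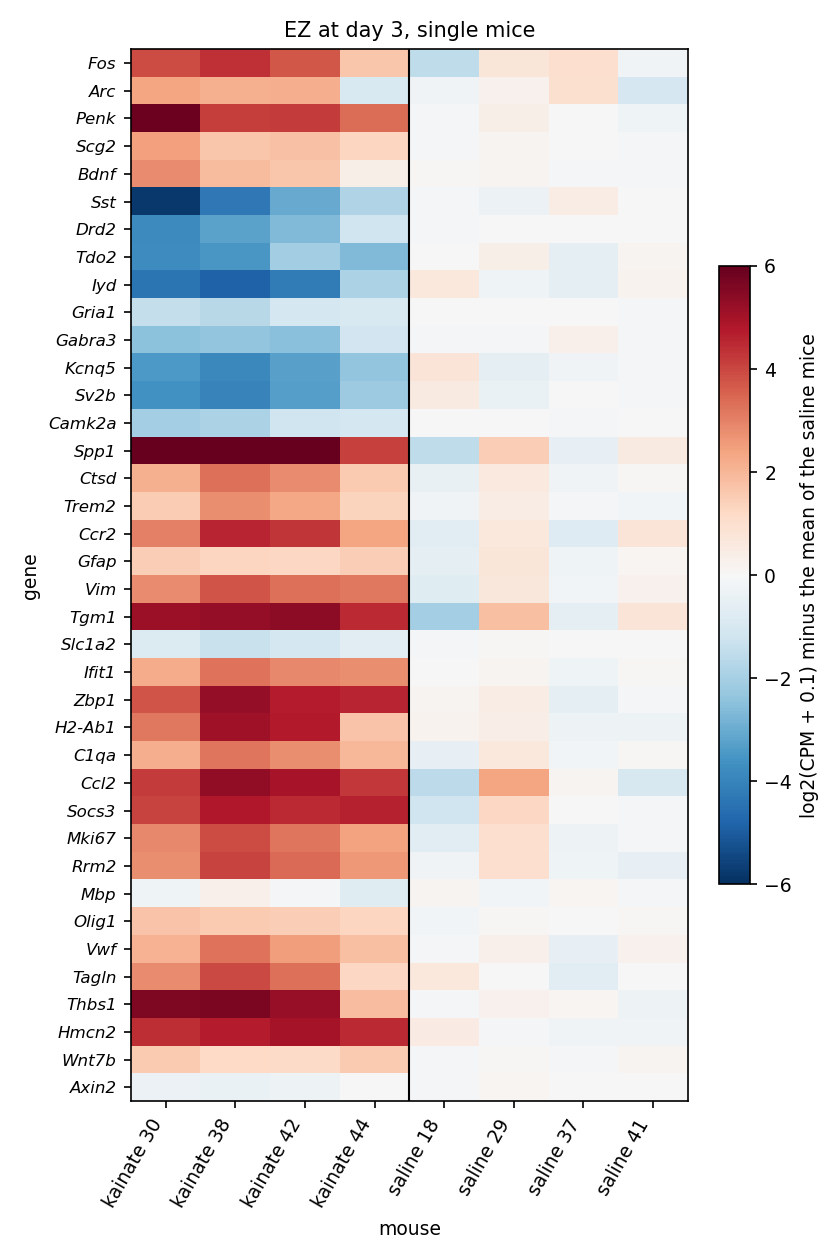
Rows are genes of the report and columns the 8 EZ libraries of day 3, and the color gives log2(CPM + 0.1) minus the mean of the 4 saline mice, with values beyond 6 in either direction drawn at 6. Mouse 44 is paler than the other kainate mice in rows such as Fos, Arc, Thbs1 and Sst, but not in Wnt7b.

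Interferon-stimulated genes were called throughout, with 28 of 28 listed members higher, each without overlap of the groups (median 2.81). Type I interferon acts through the factor ISGF3, which binds the interferon-stimulated response element (ISRE) in promoters. The ISRE core, GAAA and again GAAA with any 2 bases between, was searched on both strands of the 250 bases before each start, where matches may overlap. It occurred in 3.32% of all 21627 protein-coding promoters and in 13 of the 28 promoters of the list (46.4%). Among tested genes it occurred in 4.36% of those that rose, 2.37% of those that fell and 2.91% of those not called. The last 150 bases before the start are shown, 5′ to 3′ on the coding strand in GRCm39 with the core in capitals, for Ifit1 and Zbp1, which hold it, and for Ifitm3, which rose without a match in this window.
Ifit1, chr19:34618121-34618270 (+): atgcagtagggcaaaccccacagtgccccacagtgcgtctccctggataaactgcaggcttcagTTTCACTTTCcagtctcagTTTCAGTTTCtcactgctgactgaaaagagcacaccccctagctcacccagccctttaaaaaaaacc
Zbp1, chr2:173060725-173060874 (-): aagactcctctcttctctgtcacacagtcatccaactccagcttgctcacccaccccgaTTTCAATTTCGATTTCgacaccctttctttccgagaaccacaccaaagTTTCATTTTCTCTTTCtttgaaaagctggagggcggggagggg
Ifitm3, chr7:140591283-140591432 (-): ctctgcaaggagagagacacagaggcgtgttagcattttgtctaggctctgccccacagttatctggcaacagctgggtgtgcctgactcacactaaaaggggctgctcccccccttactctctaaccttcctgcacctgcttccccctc

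Ifit1, which binds RNA without a methylated cap, was at 12.1, 25.4, 19.6 and 18.1 CPM in kainate and 2.60, 2.88, 2.12 and 2.68 CPM in saline mice, with mouse 30 the lowest kainate mouse (log2 fold change 2.87 ± 0.50, adjusted p = 1.80e-05). Its core occurs in 2 places. Zbp1, a sensor of Z-form nucleic acid that can start necroptosis, was at 5.43, 15.8, 10.7 and 9.60 CPM in kainate and 0.353, 0.450, 0.184 and 0.292 CPM in saline mice. Zbp1 had the largest rise of the list (log2 fold change 4.99 ± 0.81, adjusted p = 5.78e-06), and its 4 matches overlap in 2 runs. Ifitm3, a membrane protein that blocks viral entry and the most abundant of the list per kilobase, was at 76.0, 123, 96.4 and 75.2 CPM in kainate and 11.9, 19.4, 9.50 and 15.5 CPM in saline mice (log2 fold change 2.72 ± 0.42, adjusted p = 3.00e-06). Summed interferon genes stood at 578 CPM in mouse 30, the lowest of the kainate mice, and 764 to 1092 CPM in the others, against 161 to 207 CPM in saline mice.

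Antigen presentation genes rose in 15 of 16 cases (median 2.50). The class I heavy chain H2-K1 was at 130.0, 223, 195 and 91.4 CPM in kainate and 19.6, 31.3, 23.4 and 26.9 CPM in saline mice (log2 fold change 2.66 ± 0.44, adjusted p = 7.22e-06), and B2m, its light chain, at 356, 649, 493 and 249 CPM in kainate and 84.0, 136, 104 and 97.3 CPM in saline mice (log2 fold change 2.05 ± 0.38, adjusted p = 3.26e-05). H2-Ab1 (chr17:34476663-34488393), a class II chain of professional antigen-presenting cells, was at 11.7, 45.0, 36.2 and 4.29 CPM in kainate and 1.46, 1.62, 0.968 and 0.974 CPM in saline mice. The range among kainate mice was wide, with mouse 44 the lowest, but the groups did not overlap (log2 fold change 4.27 ± 0.70, adjusted p = 7.82e-06). No promoter of this list held the ISRE core (0 of 16).

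Of 18 complement genes 13 rose and 1 fell (median 2.26, or 2.16 with Cfi at its bound). C1qa (chr4:136623223-136626161), which opens the classical pathway and tags synapses, was at 336, 670.0, 514 and 289 CPM in kainate and 51.2, 113, 65.4 and 75.6 CPM in saline mice and C1qb at 336, 694, 536 and 324 CPM in kainate and 71.5, 143, 88.3 and 97.2 CPM in saline mice. Both were highest in mouse 38, and saline mouse 29 was the highest of its group (log2 fold change 2.57 ± 0.47, adjusted p = 3.13e-05 and log2 fold change 2.24 ± 0.45, adjusted p = 1.10e-04). Cfi, which inactivates C3b, was below the floor in saline mice and at least 4.07-fold higher in kainate mice, at 0.459, 1.03, 0.544 and 0.210 CPM in kainate and 0, 0, 0 and 0 CPM in saline mice. Cd55, which speeds the decay of the convertases, fell, at 0.689, 1.34, 1.197 and 1.43 CPM in kainate and 3.40, 2.48, 2.58 and 4.24 CPM in saline mice (log2 fold change -1.44 ± 0.29, adjusted p = 9.49e-05).

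Cytokines rose in 10 of 13 tested cases and chemokines in 10 of 17, with 1 chemokine lower, or 2 without kainate mouse 44. The cytokine median was 2.28 and the chemokine median 3.30, or 2.64 over 16 genes without a member at the floor in both groups. Tnf (chr17:35418357-35420983) was at 1.11, 2.68, 1.96 and 0.547 CPM in kainate and 0.0883, 0.0450, 0 and 0 CPM in saline mice. Saline mice were at the floor for Tnf, which was at least 11.4-fold higher in kainate mice. Il1b was at 0.536, 2.33, 1.16 and 0.758 CPM in kainate and 0.0883, 0.270, 0.0922 and 0.536 CPM in saline mice, with overlap (log2 fold change 2.28 ± 0.68, adjusted p = 0.00568), and lost its call without kainate mice 38 or 42 or saline mice 29, 37 or 18, at values of 1.73, 2.29, 2.33, 2.01 and 1.99, and with only the compared groups in the model (adjusted p = 0.0150), and was at 2.95 without saline mouse 41. Il1a was not called (log2 fold change 0.49 ± 0.43, adjusted p = 0.358). Csf1, the growth factor of microglia, was at 73.6, 109, 102 and 102 CPM in kainate and 30.5, 42.1, 30.2 and 34.5 CPM in saline mice (log2 fold change 1.49 ± 0.22, adjusted p = 1.54e-06). Il6, Csf2 and Csf3 had too few counts to be tested, as did Cxcl1 and Cxcl2.

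Ccl2 (chr11:81926397-81928279), which draws monocytes through CCR2, was at 5.32, 11.6, 8.96 and 5.43 CPM in kainate and 0, 1.40, 0.231 and 0.0487 CPM in saline mice. Saline mouse 29 was highest of its group, and Ccl2 rose (log2 fold change 4.19 ± 0.78, adjusted p = 4.17e-05, 6.32 without mouse 29). Ccl3, a chemokine of activated microglia, was at 6.58, 12.4, 8.81 and 2.44 CPM in kainate and 0.309, 0.630, 0.461 and 0.828 CPM in saline mice (log2 fold change 3.76 ± 0.60, adjusted p = 4.42e-06). Cxcl10, the interferon-induced ligand of CXCR3, was at 16.3, 22.3, 21.04 and 16.1 CPM in kainate and 0.309, 1.98, 0.277 and 0.0974 CPM in saline mice and nearly equal over the kainate mice (log2 fold change 4.80 ± 0.74, adjusted p = 3.26e-06, 6.33 without mouse 29). Cxcl12, which guides granule cells and their precursors, was the chemokine that fell, at 23.4, 55.4, 45.6 and 44.9 CPM in kainate and 76.6, 93.2, 101 and 92.2 CPM in saline mice (log2 fold change -1.10 ± 0.20, adjusted p = 2.86e-05). Cx3cl1, the neuronal ligand of the microglial receptor CX3CR1, was at 477, 290.3, 400.2 and 391 CPM in kainate and 505, 468, 515 and 464 CPM in saline mice and was not called (log2 fold change -0.32 ± 0.16, adjusted p = 0.0828).

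Downstream of these signals, 7 of 14 genes of gp130 and STAT3 signaling rose and 14 of 18 NF-kB genes rose, with 0 lower in either. Stat3 was at 223, 204, 194 and 175 CPM in kainate and 60.5, 83.7, 68.1 and 76.5 CPM in saline mice (log2 fold change 1.46 ± 0.21, adjusted p = 1.02e-06). Socs3 (chr11:117856905-117860898), its feedback inhibitor, was at 33.1, 55.1, 43.4 and 47.5 CPM in kainate and 0.750, 4.59, 1.89 and 1.80 CPM in saline mice, and the highest saline mouse was again 29 (log2 fold change 4.30 ± 0.70, adjusted p = 6.66e-06, 4.92 without it). The kinase Jak1 was not called, at 203, 178, 185 and 197 CPM in kainate and 184, 183, 179 and 188 CPM in saline mice (log2 fold change 0.06 ± 0.07, adjusted p = 0.515). Tlr2, a receptor for microbial lipoproteins and damage signals, was at 35.1, 49.97, 39.8 and 15.5 CPM in kainate and 1.63, 4.73, 2.17 and 2.73 CPM in saline mice (log2 fold change 3.64 ± 0.57, adjusted p = 3.48e-06). Nfkb2 was at 9.53, 14.7, 11.6 and 7.75 CPM in kainate and 2.34, 3.33, 2.81 and 3.12 CPM in saline mice (log2 fold change 1.91 ± 0.33, adjusted p = 1.46e-05) and Nfkb1 at 36.1, 47.9, 40.6 and 31.6 CPM in kainate and 21.1, 25.7, 24.8 and 23.5 CPM in saline mice (log2 fold change 0.72 ± 0.16, adjusted p = 4.31e-04).

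Genes of cell division rose almost throughout, 22 of 24 for DNA replication and 27 of 28 for mitosis, with 0 lower and medians of 1.73 and 2.83. Mki67 (chr7:135291513-135318299), which coats mitotic chromosomes, was at 68.3, 137, 85.0 and 49.3 CPM in kainate and 5.78, 18.01, 7.38 and 8.62 CPM in saline mice. Mouse 38 was highest, mouse 44 lowest of the kainate mice, and saline mouse 29 highest of its group (log2 fold change 3.09 ± 0.46, adjusted p = 2.07e-06). Top2a, topoisomerase II, was at 60.5, 117, 78.0 and 43.7 CPM in kainate and 4.94, 17.2, 6.64 and 7.89 CPM in saline mice (log2 fold change 3.02 ± 0.45, adjusted p = 2.00e-06), and Cdk1, the mitotic kinase, at 19.1, 36.6, 24.9 and 14.9 CPM in kainate and 1.28, 5.04, 1.25 and 2.44 CPM in saline mice (log2 fold change 3.25 ± 0.50, adjusted p = 2.96e-06, 3.85 without saline mouse 29). Rrm2, which supplies deoxynucleotides, was at 22.8, 54.8, 35.3 and 20.2 CPM in kainate and 2.74, 6.57, 2.63 and 2.24 CPM in saline mice (log2 fold change 3.23 ± 0.44, adjusted p = 4.41e-07). The replication helicase subunits Mcm2 and Mcm3 were at 19.3, 36.4, 26.5 and 15.5 CPM in kainate and 6.14, 6.03, 5.35 and 5.21 CPM in saline mice and at 23.3, 43.1, 34.5 and 20.2 CPM in kainate and 5.08, 6.30, 4.75 and 4.82 CPM in saline mice (log2 fold change 2.10 ± 0.23, adjusted p = 2.30e-08 and log2 fold change 2.53 ± 0.34, adjusted p = 4.98e-07). Pcna, the sliding clamp, which is also used in repair, rose less, at 59.1, 93.7, 71.2 and 43.6 CPM in kainate and 29.2, 34.5, 30.3 and 31.5 CPM in saline mice (log2 fold change 1.09 ± 0.15, adjusted p = 4.23e-07). Summed mitosis genes reached 367 to 964 CPM in kainate and 79.0 to 168 CPM in saline mice, the 168 CPM being mouse 29.

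Promoters of genes that peak in mitosis often hold a cell cycle homology region (CHR). Its forms TTTGAA and TTCGAA, searched on both strands of the 250 bases before the start, occurred in 17.0% of all promoters, in 9 of 28 of the mitosis list (32.1%) and in 1 of 24 of the replication list. The CCAAT box of NF-Y, which often stands beside it, occurred in 36.5% of all promoters, in 13 of 28 of the mitosis list (46.4%) and in 14 of 24 of the replication list (58.3%). The last 150 bases before the start of Cdk1 and Top2a are shown in the same way, with the CHR in capitals, as examples of mitosis genes that hold it.
Cdk1, chr10:69188769-69188918 (-): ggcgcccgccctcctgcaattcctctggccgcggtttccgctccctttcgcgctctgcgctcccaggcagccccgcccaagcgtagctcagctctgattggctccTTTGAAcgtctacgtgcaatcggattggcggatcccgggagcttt
Top2a, chr11:98915042-98915191 (-): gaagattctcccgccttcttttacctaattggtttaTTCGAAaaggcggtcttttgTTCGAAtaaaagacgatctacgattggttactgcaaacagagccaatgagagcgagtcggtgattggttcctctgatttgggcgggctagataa

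Of 18 p53 target genes 8 rose and 0 fell, but the direct targets divided. Cdkn1a (chr17:29309936-29319701), the cyclin kinase inhibitor p21, was at 45.2, 58.2, 47.2 and 18.9 CPM in kainate and 4.19, 7.20, 5.76 and 5.55 CPM in saline mice (log2 fold change 2.90 ± 0.42, adjusted p = 1.29e-06). Mdm2, which degrades p53, was at 48.2, 54.8, 45.2 and 45.4 CPM in kainate and 42.6, 45.3, 45.1 and 42.4 CPM in saline mice and was not called (log2 fold change 0.14 ± 0.07, adjusted p = 0.0848). The largest rise of the list was in Gtse1, a mitotic protein that restrains p53, at 6.04, 15.0, 9.54 and 4.13 CPM in kainate and 0.574, 1.94, 0.968 and 0.926 CPM in saline mice (log2 fold change 2.97 ± 0.39, adjusted p = 2.96e-07). Of 20 cell death genes 17 rose and 0 fell. Casp1, the caspase of the inflammasome, was at 4.06, 7.65, 5.40 and 4.67 CPM in kainate and 0.530, 1.80, 0.922 and 1.71 CPM in saline mice (log2 fold change 2.14 ± 0.43, adjusted p = 1.15e-04). Bcl2a1b, a survival factor of blood cells, rose most, at 10.2, 26.6, 16.4 and 6.36 CPM in kainate and 0.706, 2.97, 2.40 and 1.56 CPM in saline mice (log2 fold change 2.96 ± 0.52, adjusted p = 2.08e-05). Bcl2l1, which codes for neuronal Bcl-xL, was at 63.5, 77.4, 79.0 and 62.8 CPM in kainate and 83.0, 72.4, 69.3 and 82.3 CPM in saline mice and was not called (log2 fold change -0.12 ± 0.08, adjusted p = 0.233).

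Of 10 radial stem cell genes Nes, Fabp7, Notch1 and Sox9 rose and Hes5 and Id4 fell. Nes (chr3:87878385-87887758), the filament nestin of stem cells and reactive astrocytes, was at 47.1, 169, 105 and 55.5 CPM in kainate and 11.8, 15.8, 14.02 and 12.1 CPM in saline mice (log2 fold change 2.81 ± 0.31, adjusted p = 2.44e-08), and Fabp7, a lipid carrier of both, at 149.8, 175, 151 and 163 CPM in kainate and 19.95, 59.97, 24.3 and 32.6 CPM in saline mice (log2 fold change 2.22 ± 0.46, adjusted p = 1.37e-04). Hes5, a Notch target of stem cells, fell, at 0.421, 0.421, 0.798 and 0.884 CPM in kainate and 3.88, 1.85, 3.32 and 2.83 CPM in saline mice (log2 fold change -2.23 ± 0.44, adjusted p = 8.14e-05), and Hopx, which marks quiescent stem cells, was at 59.3, 103, 88.1 and 86.5 CPM in kainate and 79.5, 82.6, 80.2 and 83.9 CPM in saline mice (log2 fold change 0.05 ± 0.16, adjusted p = 0.833). Of 12 immature neuron genes 1 rose and 2 fell, Eomes and Neurog2, where 16.1% of all genes tested rose and 8.61% fell. Eomes, the transcription factor Tbr2 of intermediate progenitors, was at 0.0765, 0.268, 0.326 and 0.295 CPM in kainate and 1.59, 1.85, 1.48 and 1.80 CPM in saline mice (log2 fold change -2.77 ± 0.62, adjusted p = 4.03e-04). Dcx, doublecortin of young neurons, was at 24.5, 29.995, 25.1 and 23.1 CPM in kainate and 29.4, 24.7, 29.9 and 32.98 CPM in saline mice and was not called (log2 fold change -0.19 ± 0.28, adjusted p = 0.611). The gene that rose was Tubb2b, a tubulin of growing neurites, at 641, 619.9, 636 and 435 CPM in kainate and 336, 322, 282 and 339 CPM in saline mice (log2 fold change 0.87 ± 0.13, adjusted p = 1.29e-06), and without mouse 44 there were 2, Sox11 being the second (0.98).

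In the oligodendrocyte lineage 7 of 10 precursor genes rose, whereas of 12 genes of mature cells 0 passed the edgeR test in either direction (median -0.15). Olig1 (chr16:91066660-91068821), a transcription factor of the lineage, was at 164, 152, 142 and 124 CPM in kainate and 44.5, 53.5, 50.6 and 53.2 CPM in saline mice (log2 fold change 1.53 ± 0.17, adjusted p = 2.44e-08). Cspg4, the NG2 proteoglycan, was at 43.8, 70.1, 58.9 and 27.7 CPM in kainate and 19.2, 16.9, 19.1 and 19.9 CPM in saline mice (log2 fold change 1.41 ± 0.23, adjusted p = 5.12e-06) and Pdgfra, the receptor for the precursor mitogen, at 103, 134, 103 and 56.2 CPM in kainate and 50.2, 52.3, 45.2 and 51.3 CPM in saline mice (log2 fold change 0.99 ± 0.21, adjusted p = 1.93e-04). Mbp, myelin basic protein, was at 1035, 1526, 1116 and 736 CPM in kainate and 1394, 1081, 1317 and 1142 CPM in saline mice. The groups overlapped in Mbp (log2 fold change -0.16 ± 0.28, adjusted p = 0.660).

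Vascular genes rose in part. Of 13 general endothelial genes 6 rose (median 0.49), and of 10 genes of activated endothelium 7 rose (median 2.19). Cldn5, the tight junction claudin of the blood-brain barrier, was at 55.8, 78.3, 54.5 and 61.0 CPM in kainate and 19.9, 31.2, 23.1 and 24.2 CPM in saline mice (log2 fold change 1.34 ± 0.28, adjusted p = 1.71e-04). Vwf (chr6:125523737-125663642), the von Willebrand factor, was at 119.8, 264, 158 and 96.7 CPM in kainate and 25.7, 34.9, 19.8 and 33.6 CPM in saline mice (log2 fold change 2.49 ± 0.41, adjusted p = 8.68e-06), and the leukocyte adhesion molecule Icam1 was at 17.4, 27.7, 23.5 and 16.9 CPM in kainate and 3.09, 5.58, 3.37 and 5.12 CPM in saline mice (log2 fold change 2.32 ± 0.47, adjusted p = 1.15e-04). Of 9 mural cell genes 7 rose, or 3 without kainate mouse 38. Tagln, transgelin of contractile cells, was at 68.5, 147, 94.5 and 22.1 CPM in kainate and 14.6, 9.23, 6.09 and 9.35 CPM in saline mice (log2 fold change 3.08 ± 0.48, adjusted p = 3.90e-06). Of 9 fibroblast and meningeal genes 6 rose (median 2.23, or 2.13 with a member at its bound), or 2 without mouse 38. The collagen Col3a1 was at 14.04, 72.9, 22.4 and 9.77 CPM in kainate and 3.09, 3.51, 2.35 and 4.43 CPM in saline mice. Mouse 38 stood above the other kainate mice in Col3a1 (log2 fold change 3.15 ± 0.79, adjusted p = 0.00127), and without it the value was 2.21 and not called. Summed fibroblast genes were at 437 CPM in mouse 38, 118 to 204 CPM in the other kainate mice and 61.2 to 102 CPM in saline mice.

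Of 29 matrix proteins 20 rose and 4 fell, or 13 and 4 without kainate mouse 38. Thbs1 (chr2:117941974-117957616), thrombospondin 1, which activates TGF-beta and promotes synapse formation, was at 119, 124, 90.9 and 8.80 CPM in kainate and 2.21, 2.79, 2.54 and 1.90 CPM in saline mice. Mouse 44 was far below the other kainate mice but still above saline (log2 fold change 5.18 ± 0.86, adjusted p = 8.44e-06). The 4 that fell, Bcan, Hapln1, Hapln4 and Sparcl1, are components of the perineuronal and synaptic matrix. Hapln4, a link protein of perineuronal nets, was at 13.2, 7.77, 16.8 and 26.8 CPM in kainate and 116, 58.0, 73.5 and 80.6 CPM in saline mice (log2 fold change -2.35 ± 0.42, adjusted p = 2.73e-05), and Sparcl1, hevin, which astrocytes secrete at synapses, at 714, 708, 899 and 867 CPM in kainate and 1317, 1271, 1271 and 1385 CPM in saline mice (log2 fold change -0.72 ± 0.14, adjusted p = 4.97e-05). Of 18 proteases and inhibitors of the matrix 14 rose and 0 fell. Timp2, an inhibitor of metalloproteases, was at 296, 335, 274 and 284 CPM in kainate and 84.8, 93.8, 90.3 and 100.1 CPM in saline mice (log2 fold change 1.69 ± 0.45, adjusted p = 0.00202).

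Integrins, the receptors of this matrix, rose in 10 of 16 cases. Itga5, the fibronectin receptor chain, was at 35.2, 72.5, 51.0 and 21.9 CPM in kainate and 2.30, 4.64, 2.997 and 2.48 CPM in saline mice (log2 fold change 3.86 ± 0.53, adjusted p = 5.10e-07). Itgb5, which with alpha V binds vitronectin and activates TGF-beta, was at 189, 328, 269 and 176 CPM in kainate and 48.7, 94.5, 68.0 and 68.2 CPM in saline mice (log2 fold change 1.78 ± 0.33, adjusted p = 4.48e-05). Of 22 TGF-beta and activin genes 11 rose and Tgfbr3 and Acvr2a fell, with only 1 fall called without kainate mice 30, 44 or 42 or saline mice 37, 18 or 41. Tgfb1 was at 15.9, 29.3, 23.9 and 16.2 CPM in kainate and 3.27, 6.62, 5.40 and 4.38 CPM in saline mice (log2 fold change 2.12 ± 0.37, adjusted p = 1.67e-05). Tgfb2, the form made by neurons and astrocytes, lay below saline in each kainate mouse but was not called, at 39.5, 42.3, 38.4 and 24.9 CPM in kainate and 61.1, 53.5, 47.3 and 56.4 CPM in saline mice (log2 fold change -0.59 ± 0.20, adjusted p = 0.0154). Acvr2a, an activin receptor, fell, at 34.2, 27.4, 31.6 and 30.8 CPM in kainate and 51.9, 57.2, 59.9 and 59.0 CPM in saline mice (log2 fold change -0.88 ± 0.19, adjusted p = 2.31e-04).

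The study asked about Wnt signaling, in which secreted ligands bind Frizzled receptors and either stabilize beta-catenin or act without it. Of 15 tested ligands Wnt2b, Wnt5b, Wnt7b, Wnt10a and Wnt10b rose and Wnt9a fell, whose call was lost without kainate mice 38, 30 or 44 or saline mice 29, 18 or 41, at values of -1.68, -1.31, -1.47, -1.48, -1.39 and -1.55, and with scaling by library size, at -1.42. Wnt7b, the most abundant ligand per kilobase, was at 119, 90.5, 90.1 and 121 CPM in kainate and 36.9, 41.8, 37.5 and 44.6 CPM in saline mice (log2 fold change 1.39 ± 0.17, adjusted p = 1.08e-07). Wnt2b was at 1.61, 0.765, 0.617 and 3.41 CPM in kainate and 0.132, 0.180, 0.0461 and 0.146 CPM in saline mice, with mouse 44 the highest (log2 fold change 3.60 ± 0.69, adjusted p = 5.48e-05, 2.92 without mouse 44). Of 15 receptors Fzd1, Fzd6, Fzd7, Lrp5 and Ror2 rose and Ror1 fell, or 3 rose without kainate mouse 38, 1 with glmTreat and up to 8 under another setting. Fzd1 was at 22.5, 26.7, 19.8 and 9.81 CPM in kainate and 6.27, 5.18, 7.56 and 6.82 CPM in saline mice (log2 fold change 1.61 ± 0.26, adjusted p = 5.20e-06), Fzd2 was not called (log2 fold change 0.04 ± 0.20, adjusted p = 0.879), and the non-canonical receptor Ror1 fell, at 1.84, 1.80, 1.92 and 2.15 CPM in kainate and 4.81, 4.28, 6.55 and 5.21 CPM in saline mice (log2 fold change -1.43 ± 0.29, adjusted p = 1.21e-04). Of 10 secreted or membrane antagonists Kremen1 rose and Dkk3, Wif1 and Notum fell. The call of Wif1 was lost without kainate mice 30 or 42 or saline mice 37 or 41, at -1.08, -1.46, -1.05 and -1.49, and with scaling by library size (-1.36) or only the compared groups in the model (-1.53). Dkk3, the most abundant per kilobase, was at 88.3, 108, 94.2 and 133 CPM in kainate and 329, 248, 308 and 273 CPM in saline mice, less than in any saline mouse (log2 fold change -1.45 ± 0.20, adjusted p = 4.38e-07).

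Inside the cell, the transcription factors Lef1, Tcf7 and Tcf7l1 of 13 genes of the beta-catenin pathway rose and 0 fell (median 0.008), where 16.1% of all genes tested rose. Without kainate mouse 38 the number that rose was 1, and with glmTreat it was 0. Without kainate mouse 44 or with only the compared groups in the model 1 fell. The kinase Gsk3a, not called at -0.56, was called lower with only the compared groups (-0.60) and with the offset for GC content and length (-0.75). Ctnnb1, beta-catenin itself, was at 710.4, 676, 656 and 518 CPM in kainate and 497, 529, 509.9 and 519 CPM in saline mice and was not called (log2 fold change 0.32 ± 0.10, adjusted p = 0.00614). Of 10 feedback targets of beta-catenin Ccnd1, Myc, Rnf43 and Lef1 rose, or 2 without mouse 38. Axin2 (chr11:108811169-108841609), the most direct feedback target, was at 20.8, 20.4, 22.0 and 27.5 CPM in kainate and 25.2, 28.7, 27.3 and 26.4 CPM in saline mice, with overlap (log2 fold change -0.25 ± 0.12, adjusted p = 0.0783), and Nkd1 was at 5.47, 7.88, 6.57 and 6.36 CPM in kainate and 7.86, 6.98, 8.12 and 6.58 CPM in saline mice (log2 fold change -0.17 ± 0.18, adjusted p = 0.468). The target with the largest rise was Ccnd1, cyclin D1, which many growth signals induce, at 137, 308, 206 and 127 CPM in kainate and 27.1, 44.9, 54.4 and 35.6 CPM in saline mice (log2 fold change 2.26 ± 0.35, adjusted p = 3.51e-06).

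The PIZ of the same mice was set beside the EZ. There 1858 genes were called (8.69%), 1523 higher (7.12%) and 335 lower (1.57%), and 1543 genes were called in the same direction on both sides, which is 29.2% of the EZ and 83.0% of the PIZ calls. Immediate early genes had 0 of 16 called in the PIZ in either direction by edgeR or DESeq2 (4 with an unadjusted p under 0.05), synaptic vesicle genes 1 of 20 lower and interneuron genes 1 of 14 lower and 1, Npy, higher. Pan-reactive astrocyte genes had 9 of 13 higher, activated microglia 13 of 18, interferon genes 23 of 28 and mitosis genes 25 of 28. These are counts within each side, and a difference between the sides was tested for single genes only. The PIZ of saline mice was lower than their EZ in the sums of pan-reactive astrocyte, activated microglia, complement and mitosis genes, without overlap. Summed pan-reactive genes stood at 387 to 549 CPM in the saline PIZ, 1564 to 3943 CPM in the saline EZ, 5248 to 6512 CPM in the kainate PIZ and 8111 to 8781 CPM in the kainate EZ. Gfap, for example, was at 4549, 4107, 4422 and 4398 CPM in kainate and 268, 367, 343 and 409 CPM in saline mice of the PIZ (log2 fold change 3.65 ± 0.44, adjusted p = 3.00e-07). The fold changes of the sides thus rest on different baselines.

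**Figure D4:**
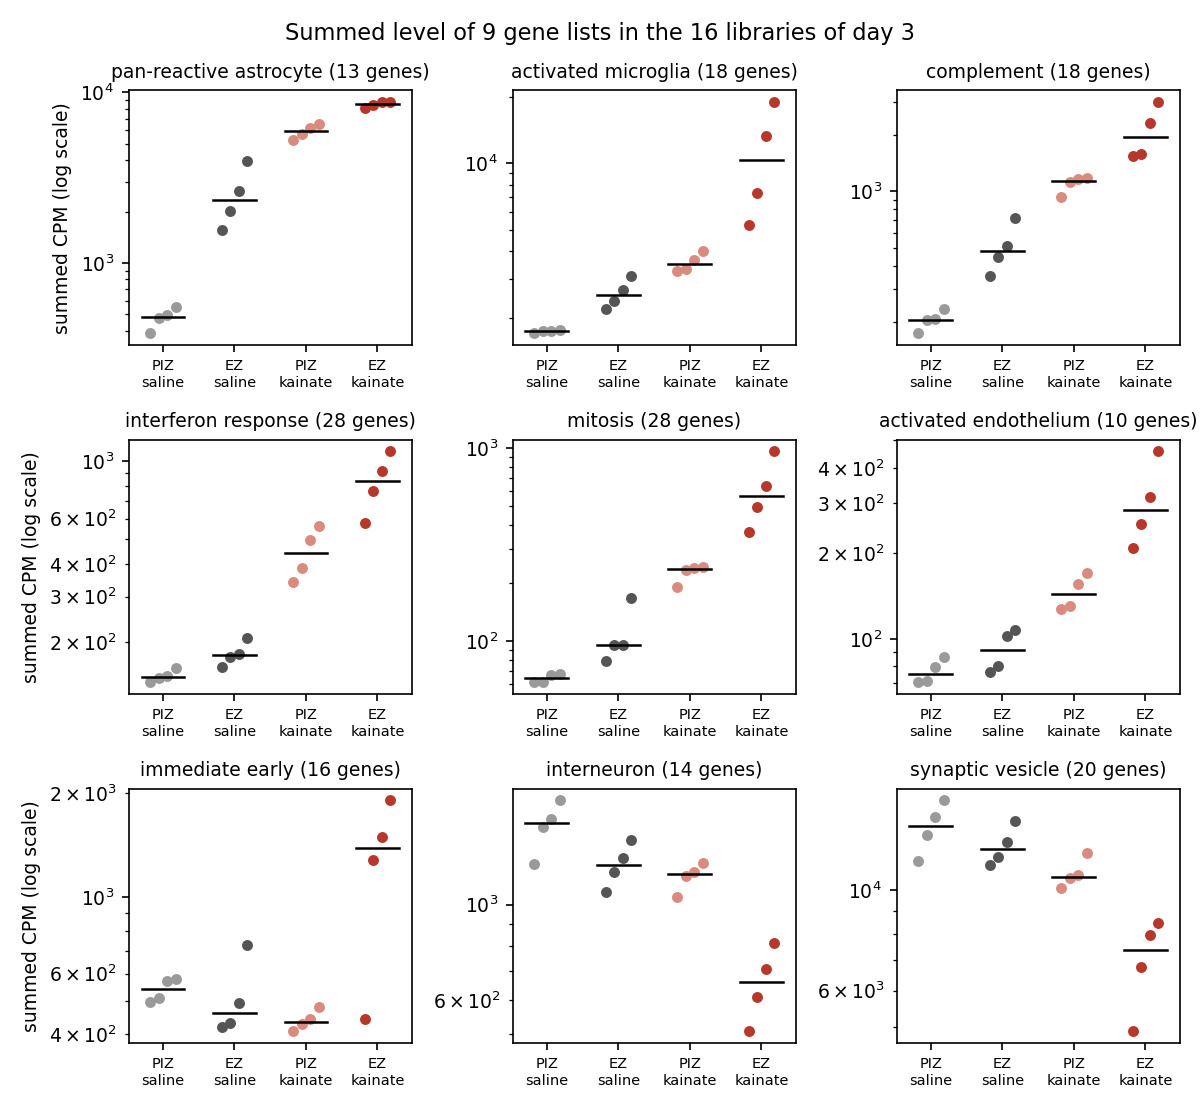
Points are the summed CPM of a list's tested genes in each of the 16 day 3 libraries, on log axes that differ between panels, and the bar is the group median. The medians of glial, immune and division lists rise from saline PIZ over saline EZ and kainate PIZ to kainate EZ, whereas in immediate early, interneuron and synaptic vesicle genes the kainate EZ stands apart from the other groups, except for 1 kainate mouse at 444 CPM in immediate early genes.

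Where the kainate effect itself differed between the sides, 14 genes passed (0.0655%), and with mouse as a block, in a paired fit, 38. The count was 208 without kainate mouse 44, 2 to 5 without any other mouse and 0 when only the compared groups were modeled (4515 genes with an unadjusted p under 0.05), so the 14 genes depend on the mice and the model. The growth factor Bmp2 was at 4.02, 8.68, 6.75 and 2.69 CPM in kainate and 0.750, 1.31, 0.784 and 0.828 CPM in saline mice of the EZ and at 1.19, 0.808, 1.38 and 1.56 CPM in kainate and 1.81, 1.70, 1.34 and 1.32 CPM in saline mice of the PIZ. Bmp2 rose in the EZ and not in the PIZ, with a difference of the log2 fold changes of 2.91 ± 0.54 (adjusted p = 0.00796). Spred1, an inhibitor of the Ras and ERK pathway, was at 384, 299, 269 and 172 CPM in kainate and 104, 135, 158 and 115 CPM in saline mice of the EZ and 149, 123, 112 and 109 CPM in kainate and 112, 153, 146 and 129.7 CPM in saline mice of the PIZ (difference of the log2 fold changes 1.27 ± 0.24, adjusted p = 0.00796). Etv4, a transcription factor downstream of ERK, was at 9.33, 11.9, 10.6 and 7.07 CPM in kainate and 4.94, 5.22, 4.10 and 4.87 CPM in saline mice of the EZ and 4.997, 4.40, 5.58 and 3.76 CPM in kainate and 8.03, 8.21, 5.85 and 6.01 CPM in saline mice of the PIZ (difference of the log2 fold changes 1.61 ± 0.29, adjusted p = 0.00581). Kitl, the ligand of the receptor KIT, was at 81.0, 82.3, 73.8 and 26.7 CPM in kainate and 25.03, 31.5, 29.8 and 30.6 CPM in saline mice of the EZ and 19.7, 20.4, 19.5 and 19.7 CPM in kainate and 35.7, 36.9, 43.0 and 27.8 CPM in saline mice of the PIZ, and here the sides moved in opposite directions, each called, although the EZ call was lost with only the compared groups in the model (adjusted p = 0.0114).

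Ttn, titin, fell only in the EZ by this test, at 0.421, 0.612, 0.580 and 2.10 CPM in kainate and 9.18, 13.5, 9.68 and 9.84 CPM in saline mice of the EZ and 10.8, 12.4, 6.68 and 4.68 CPM in kainate and 4.13, 6.75, 6.72 and 8.25 CPM in saline mice of the PIZ (difference of the log2 fold changes -3.94 ± 0.74, adjusted p = 0.00796). Etl4, a protein of cell junctions and the notochord, was at 4.71, 9.26, 7.69 and 14.7 CPM in kainate and 42.2, 33.2, 47.0 and 36.05 CPM in saline mice of the EZ and 39.4, 45.2, 35.1 and 28.6 CPM in kainate and 51.0, 45.0, 40.9 and 48.6 CPM in saline mice of the PIZ (difference of the log2 fold changes -1.81 ± 0.34, adjusted p = 0.00878). Plcxd2, a phospholipase domain protein, was at 7.54, 8.15, 7.62 and 9.77 CPM in kainate and 41.2, 32.8, 33.4 and 43.1 CPM in saline mice of the EZ and 21.7, 31.7, 29.2 and 16.9 CPM in kainate and 41.5, 26.4, 38.2 and 47.3 CPM in saline mice of the PIZ (difference of the log2 fold changes -1.56 ± 0.29, adjusted p = 0.00796). Ntsr2 was at 58.6, 83.5, 103 and 65.4 CPM in kainate and 91.1, 108, 97.7 and 107 CPM in saline mice of the PIZ (difference of the log2 fold changes -1.08 ± 0.21, adjusted p = 0.00878). Irs2, the insulin receptor substrate, and Ctps1, which makes CTP, were called on neither side alone but differed between them (difference of the log2 fold changes 0.81 ± 0.15, adjusted p = 0.00796 and difference of the log2 fold changes 0.87 ± 0.14, adjusted p = 0.00191). Cxcl5, a chemokine for neutrophils, was at 0.230, 0.421, 0.725 and 2.40 CPM in kainate and 1.59, 4.32, 2.81 and 1.71 CPM in saline mice of the EZ and 1.597, 3.15, 3.34 and 4.04 CPM in kainate and 0.279, 0.146, 0.347 and 0.273 CPM in saline mice of the PIZ, so that by their medians saline mice were higher in the EZ and kainate mice in the PIZ (difference of the log2 fold changes -4.98 ± 0.76, adjusted p = 6.00e-04). The fall of Cxcl5 in the EZ, not called in the model used throughout (log2 fold change -1.48 ± 0.49, adjusted p = 0.0119), was called with mouse as a random block (-1.90), by DESeq2 (-1.49) and without kainate mouse 44 (-2.49).

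**Figure D5:**
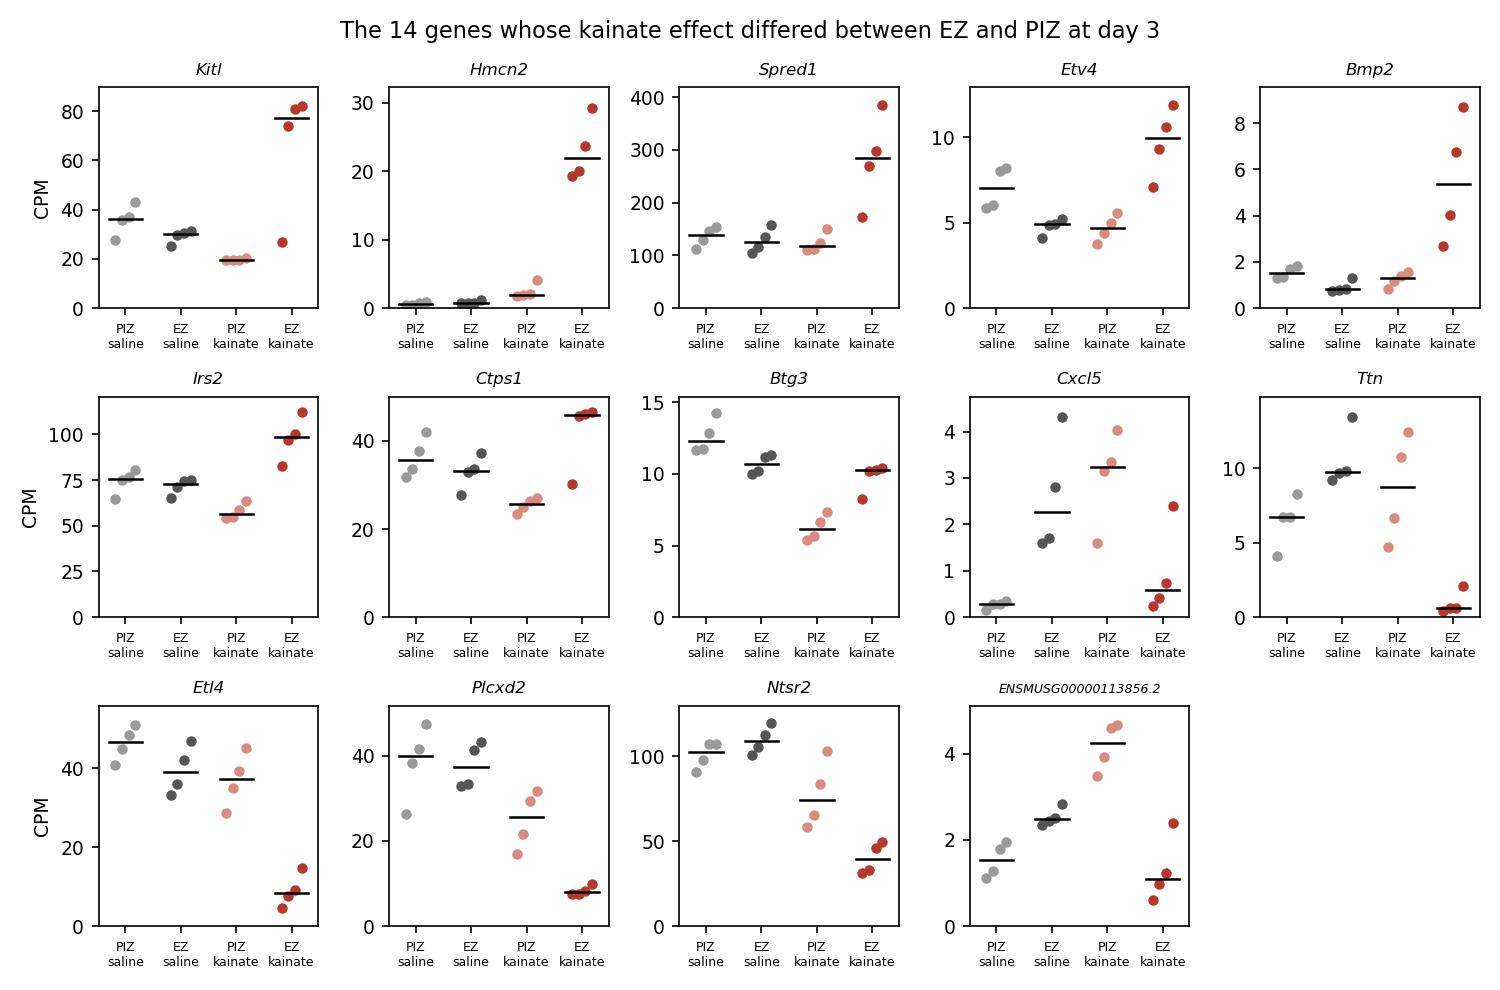
Each panel shows the CPM of 1 of the 14 genes in the 16 day 3 libraries, in the order saline PIZ, saline EZ, kainate PIZ and kainate EZ, with the group median as a bar. In Kitl, Hmcn2, Spred1, Etv4 and Bmp2 the kainate EZ is highest by its median, and in Ttn, Etl4, Plcxd2 and Ntsr2 it is lowest with every mouse.

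By day 7, 6960 genes were called in the EZ (32.5%), 4413 higher (20.6%) and 2547 lower (11.9%), and the change of the effect from day 3 to day 7 passed for 31 genes (0.145%), with a higher effect at day 7 in 24 and a lower one in 7. Among the 24 were markers of resting glia. P2ry12 went from a log2 fold change of -0.26 at day 3 to 1.41 at day 7 (difference 1.67 ± 0.31, adjusted p = 0.00475), and Siglech, another marker of resident microglia, from -0.31 to 1.79 (difference 2.10 ± 0.40, adjusted p = 0.00475). Aldoc, aldolase C of astrocytes, went from -0.92 to 0.17 (difference 1.09 ± 0.18, adjusted p = 0.00184), Clu, clusterin, from -0.46 to 0.56 (difference 1.02 ± 0.18, adjusted p = 0.00254), and Mlc1, of astrocyte endfeet, from 0.22 to 1.11 (difference 0.89 ± 0.18, adjusted p = 0.00758). Enpp6, which marks newly forming oligodendrocytes, went from -0.80 to 1.87 (difference 2.67 ± 0.54, adjusted p = 0.00968). Bcan went from -1.36 to -0.27 (difference 1.09 ± 0.21, adjusted p = 0.00758). Of the 7 that went the other way, Slc12a3, a sodium chloride cotransporter, went from 3.65 to 0.26 (difference -3.39 ± 0.61, adjusted p = 0.00328). Hmcn2 went from 4.78 to 2.57 (difference -2.21 ± 0.40, adjusted p = 0.00340), Syndig1l, a synaptic membrane protein, from 2.44 to 0.06 (difference -2.38 ± 0.33, adjusted p = 1.65e-04) and Rgs4, which limits G protein signaling, from 2.46 to 0.50 (difference -1.97 ± 0.33, adjusted p = 0.00184). The other 3 were Plekha6, Pdlim7 and Eif1b, and these 7 were named after their values were seen. These mice differ between days, and the count was 8 to 83 when 1 mouse was left out.

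Kainate mice differed among themselves in a regular way. Mouse 38 lay furthest from saline in 2641 of the 3439 genes that rose (76.8%) and in 1022 of the 1841 that fell (55.5%). Mouse 44 lay nearest to saline in 2163 (62.9%) and in 1288 (69.96%). The median deviation from the saline mean over genes that rose was 1.79, 1.49, 1.21 and 1.03 on the log2 scale in mice 38, 42, 30 and 44. For genes that fell it was -1.32, -1.04, -1.14 and -0.71 in the same order. Saline mouse 29 was the nearest of its group to kainate in 1925 (56.0%) of the genes that rose.

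Of the genes with the widest spread over the kainate mice, other than those of the sex chromosomes, Cartpt, Fndc9 and Mpped1 separated mouse 44 from the rest. Spp1 and Cd5l, given above, also ran widely over these mice, with mouse 38 highest and mouse 44 lowest. Cartpt, a neuropeptide of granule cells and mossy cells, was at 82.5, 33.5, 27.2 and 2.74 CPM in kainate and 0.309, 0.495, 1.25 and 0.438 CPM in saline mice (log2 fold change 5.87 ± 1.32, adjusted p = 3.96e-04, 5.08 without kainate mouse 30), and was not called with mouse as a random block, at 5.28 (adjusted p = 0.0209). Fndc9, a membrane protein with a fibronectin domain, was at 30.5, 25.8, 20.7 and 1.77 CPM in kainate and 0.177, 0.360, 0.231 and 0.292 CPM in saline mice (log2 fold change 6.19 ± 0.74, adjusted p = 6.15e-08). Both were high in mice 30, 38 and 42 and only somewhat above saline in mouse 44. Mpped1, a pyramidal cell marker, was at 4.51, 2.79, 4.82 and 60.5 CPM in kainate and 108, 97.1, 150.1 and 91.5 CPM in saline mice. Mouse 44 kept more of it than the other kainate mice (log2 fold change -2.63 ± 0.68, adjusted p = 0.00172), and the call was lost without kainate mice 38, 30 or 42, at -2.26, -2.30 and -2.31, and with only the compared groups in the model (adjusted p = 0.0348), and the value was -4.78 without mouse 44 and -3.86 with mouse as a random block. Without mouse 44 altogether 5962 genes were called, including 5081 of the 5280, and without mouse 38 there were 3921, including 3871.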

How the data were processed

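RNA-seq of 48 dentate gyrus libraries from 24 mice was used. The authors trimmed reads with fastp 0.20.1, aligned them to GRCm39 with HISAT2 2.2.1 and deposited raw counts per gene of Gencode M28, made strand-specifically with featureCounts (Subread 1.6.4). Multi-mapping reads were counted at their primary alignment, so that near-identical genes such as those of the Ifit, H2 and Bcl2a1 families can trade counts. The table holds 55357 genes and 0 columns without a sample, and 98.9% of its genes matched the Gencode M39 annotation used for positions.

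Counts were tested with the edgeR 4.0.16 quasi-likelihood test (R 4.3.3) on all 48 libraries with 12 group means, TMM scaling and the filterByExpr minimum. Calls needed a Benjamini-Hochberg adjusted p below 0.01 with a change of more than 1.5-fold. Standard errors are the absolute log2 fold change divided by the square root of F. Limma 3.58.1, DESeq2 1.42.0 and the other alternatives are given with the processing results. Replicates are separate mice. Same-numbered EZ and PIZ libraries come from the same mouse, and their deviations from the group means correlated at -0.054 to 0.376. A library with 3 counts or fewer was taken as at the floor. Library measures were compared by exact permutation tests.

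Members and lists were chosen with earlier results of these data known. Named were the 10 protein-coding genes with the smallest p in each direction and the 5 largest rises and falls of at least 1 CPM, from each list the first 2 genes, the largest rise, the largest fall and the most abundant per kilobase, all genes whose effect differed between the sides, the 3 with the smallest p in each direction between the days and the 10 with the widest spread over kainate mice. Not all of these are printed, some named genes are not reported here, and other genes were named after their values were seen, as were all members given by name where a list had 5 or fewer calls. Promoter sequences are from GRCm39, upstream of Gencode M39 starts. On simulated counts (21390 genes) the test called 64 of 100 2-fold and 80 of 100 4-fold changes and 0 unchanged genes. In these counts only the changed genes differed between groups, and each gene had the same dispersion in every group. The data depart from that setting, with 24.7% of genes called and kainate mice that differed among themselves.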

Additional observations from a re-analysis of the deposited data

Results flagged for a closer look

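Single mice stood apart from the other 3 of their group in some genes by Dixon's 95% critical value on log2(CPM + 0.1). Over the genes named by the rule, 29 of 500 groups did so (5.8%), where a rate of 1 in 20 would give 25. The rule took in the 10 genes with the widest spread over kainate mice, so that 25 is not a chance count for this set. Kainate mouse 44 was the mouse in 13 of the 29. It was the lowest kainate mouse in Arc (32.1 CPM), Trh (0.631), Thbs1 (8.80), Tubb2b (435), Fndc9 (1.77), Kitl (26.7) and Ctps1 (30.3), and the highest in Fgf10 (2.10), Tppp (250.04), Grik1 (4.38) and Gabra3 (8.08). Kainate mouse 30 was the highest in Gad2 (168 CPM) and Tril (139) and the lowest in Reln (9.76), Eomes (0.0765) and Csf1 (73.6). Among saline mice, mouse 37 was the highest in Fam110c (0.0922 CPM) and Gabra3 (22.1), and mouse 18 the lowest in Npy (32.1).

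The kainate effect differed between the EZ and the PIZ at day 3 in 14 genes, tested as an interaction in the edgeR model. The EZ minus PIZ difference of the log2 fold changes was positive for Bmp2 (2.91), Hmcn2 (2.80), which codes for the matrix protein hemicentin 2, Kitl (2.03), Etv4 (1.61), Spred1 (1.27), Btg3 (0.89), an antiproliferative factor, Ctps1 (0.87) and Irs2 (0.81). It was negative for Cxcl5 (-4.98), Ttn (-3.94), ENSMUSG00000113856.2 (-2.40), Etl4 (-1.81), Plcxd2 (-1.56) and Ntsr2 (-1.08). The number of such genes changed with the mice and the model, as given with the processing.

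The kainate effect in the EZ also differed between days 7 and 3 in genes of the text. The day 7 minus day 3 difference was 2.67 for Enpp6, 2.10 for Siglech, 1.76 for Reln, 1.67 for P2ry12, 1.22 for Ntsr2, 1.09 for Aldoc, 1.02 for Clu, 2.32 for ENSMUSG00000113856.2, 1.09 for Bcan and 0.89 for Mlc1. It was -3.39 for Slc12a3, -2.38 for Syndig1l, -2.21 for Hmcn2, -1.97 for Rgs4, -1.20 for Plekha6, -0.79 for Pdlim7 and -0.78 for Eif1b. All of these had an adjusted p under 0.01 in the edgeR model.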

How the results depend on the processing

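The 5280 calls in the EZ at day 3 were 3962 to 6386 under RLE size factors, scaling by library size, no filter, a minimum of 10 counts, an adjusted p of 0.05, a model of the compared groups, DESeq2, mouse as a random block in limma-voom and the offset for GC content and length, and 3921 (without kainate mouse 38) to 5962 (without kainate mouse 44) when 1 mouse was left out. Tested against a 1.5-fold change with glmTreat they were 2242, of which 1693 were higher and 549 lower. The 14 genes whose effect differed between the sides were 127 at an adjusted p of 0.05, 3 with glmTreat, 0 with the compared groups alone, 98 with DESeq2 and 38 in the paired fit with mouse as a fixed block, and 2 (without saline mouse 29) to 208 (without kainate mouse 44) when 1 mouse was left out. The 31 genes whose effect differed between the days were 104 at an adjusted p of 0.05, 1 with glmTreat, 3 with the compared groups alone and 98 with DESeq2, and 8 (without saline mouse 20) to 83 (without kainate mouse 23) when 1 mouse was left out. Mouse as a random block kept the count of calls in the EZ within 1.5 times but ended the calls of Cd5l, Trh and Cartpt, made a call of Cxcl5, and moved the kept calls of 9 genes of the text by over 1.5 times, among them to log2 fold changes of 5.11 for Tgm1, 5.55 for Cxcl10, 5.59 for Ccl2, 5.599 for Fndc9, -3.81 for Sst, -3.86 for Mpped1 and -5.73 for Rtl3. The offset for GC content and length moved Ttn to -2.87. Npy was called with only the compared groups, Tgfb2 with those groups and by DESeq2, and Sox11 with scaling by library size and with the offset. With glmTreat 29 genes of the text lost their call, and so did Ror2, Kremen1 and Tcf7, which are only named there. The first of the 29 by name were Abca1, Acvr2a, Amigo2, Arc, Calb1, Cxcl12, Cyp46a1, ENSMUSG00000113856.2, Eno2, Etv4, Gfap, Glul, Gria1 and Gria2. The others were Grik1, Grm5, Il1b, Ilrun, Nfkb1, Pdgfra, Slc1a2, Slc6a11, Sparcl1, Syn2, Tfrc, Timp2, Tubb2b, Wif1 and Wnt9a. The difference in detected genes (1155.25) was 1036 to 1367 when 1 mouse was left out, with an exact permutation p of 0.0571 without any of the saline mice. The difference in the hemoglobin share, 0.000136 percentage points, was -0.00250 to 0.00274 and changed sign without kainate mice 38 (-0.00250) or 42 (-0.00156) or saline mouse 41 (-0.000545). Of the other results, namely the named genes and the counts of the lists, 6138 values under the alternatives kept their side of the threshold and their direction, 170 lost a call, 29 gained one, 229 list counts or uncalled values moved and 0 called values reversed. With 4 mice a group the test called 64 of 100 simulated 2-fold changes, so that absence of a call does not show equal levels. Each group held 2 males and 2 females, and sex was not a term of the model. The cause of these changes with the setting was not tested.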

Other observations

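Genes of the oxidative, heat shock and metal stress response were not all moved by kainate. Of 24 listed members 12 rose and 1 fell (median log2 fold change 0.49). Hspb1, a small heat shock protein of reactive astrocytes, was at 31.1, 40.6, 41.6 and 16.1 CPM in kainate and 2.60, 4.46, 4.93 and 3.75 CPM in saline mice. Every kainate mouse was above every saline mouse in Hspb1 (log2 fold change 3.04 ± 0.44, adjusted p = 1.18e-06). Hmox1, heme oxygenase 1, which frees iron from heme, was at 43.997, 65.1, 43.7 and 52.6 CPM in kainate and 5.16, 17.1, 7.19 and 12.1 CPM in saline mice (log2 fold change 2.31 ± 0.34, adjusted p = 2.03e-06), and the ferritin light chain Ftl1 rose as well (log2 fold change 1.94, adjusted p = 3.37e-06). The gene that fell was Tfrc, the transferrin receptor, at 94.0, 88.1, 88.8 and 86.3 CPM in kainate and 188, 134, 127 and 136 CPM in saline mice (log2 fold change -0.71 ± 0.14, adjusted p = 5.09e-05), but its call was lost without saline mouse 18, at -0.57, with scaling by library size, at -0.58, and with the offset for GC content and length, at -0.52. Without kainate mouse 38 or 30, 2 members were lower, and with scaling by library size 0.

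Cholesterol synthesis and cholesterol export were listed apart. Of 18 synthesis genes 0 were called by edgeR or DESeq2, and their log2 fold changes lay between -0.26 and 0.67. Of 12 genes of export, storage and turnover 7 rose and 1 fell. Ch25h, which makes 25-hydroxycholesterol in activated microglia and macrophages, was at 28.9, 45.1, 32.8 and 8.08 CPM in kainate and 0.177, 0.405, 0.599 and 1.66 CPM in saline mice (log2 fold change 5.35 ± 0.73, adjusted p = 5.33e-07, 6.18 without saline mouse 41). Abca1, the pump that loads lipid onto apolipoproteins, was at 167, 323, 234 and 203 CPM in kainate and 76.2, 98.2, 85.7 and 83.4 CPM in saline mice (log2 fold change 1.43 ± 0.32, adjusted p = 3.88e-04). Plin2, which coats lipid droplets, rose with a log2 fold change of 3.68 (adjusted p = 5.38e-07). Cyp46a1, which makes 24-hydroxycholesterol in neurons, was the member that fell, at 45.5, 30.7, 47.4 and 82.7 CPM in kainate and 109, 86.2, 95.5 and 94.0 CPM in saline mice (log2 fold change -0.90 ± 0.20, adjusted p = 3.24e-04), and was not called with only the compared groups in the model (adjusted p = 0.0152).

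Of 24 nuclear-encoded genes of the respiratory chain 0 were called by edgeR or DESeq2, with log2 fold changes between -0.35 and 0.21, whereas mitochondrially encoded transcripts were lower as a share of counts. Of 18 glycolysis genes 4 rose, namely Hk2, Ldha, Slc16a1 and Slc16a3, and 2 fell, Gpi1 and Eno2, where 16.1% of all genes tested rose and 8.61% fell. Slc16a3, a lactate exporter of glia, was at 8.95, 14.7, 13.3 and 7.45 CPM in kainate and 0.750, 2.03, 1.80 and 2.24 CPM in saline mice (log2 fold change 2.70 ± 0.45, adjusted p = 7.62e-06), and Hk2, an inducible hexokinase, at 21.8, 35.01, 29.7 and 23.2 CPM in kainate and 7.90, 11.5, 9.13 and 7.89 CPM in saline mice (log2 fold change 1.59 ± 0.31, adjusted p = 6.54e-05). Eno2, the neuronal enolase, was at 439, 279, 418 and 552 CPM in kainate and 713, 601, 641 and 643 CPM in saline mice (log2 fold change -0.62 ± 0.18, adjusted p = 0.00449), and its call was lost without kainate mice 38 or 42 or saline mice 37, 18 or 41, at -0.47, -0.62, -0.63, -0.57 and -0.63, with scaling by library size (-0.50) and with only the compared groups in the model (-0.66). The number of glycolysis genes that fell was 0 without kainate mouse 38 or saline mouse 18 and 1 without kainate mouse 42 or saline mice 37 or 41.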
